A study of Homo sapiens with 32 samples.

Results

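The collagen chain genes encode the subunits of the collagens, proteins built of 3 chains wound into a triple helix. In the count table of 60332 genes, 44 gene names have the form COL, a number, A and a number, and the 42 with at least 20 counts summed over all 32 libraries are described here. COL19A1, with 2 counts, and COL22A1, with 13, fall below that minimum. COL10A1 and COL6A5 sit just inside it with 20 counts each. By structure, the 42 are 11 fibril-forming chains, 6 basement membrane network chains, 5 beaded filament chains, the anchoring fibril chain COL7A1, 3 short-chain network chains, 8 chains that attach to fibrils (fibril-associated collagens with interrupted triple helices, FACIT), 4 transmembrane chains, 2 multiplexins and 2 others.

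As background, collagen chains are hydroxylated, glycosylated and folded in the endoplasmic reticulum, secreted, trimmed and cross-linked outside the cell. Basal epithelial cells such as those of breast and skin rest on a basement membrane of type IV network, and are tied to it by hemidesmosomes that contain collagen XVII and by anchoring fibrils of collagen VII. Fibroblasts and other mesenchymal cells make most of the fibrillar collagens I, III and V and the beaded filament collagen VI.

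Polyadenylated RNA was sequenced from 2 human cell lines, MCF10A, a non-tumour breast epithelial line, and hTERT RPE-1, a retinal pigment epithelial line made immortal with telomerase, in 16 groups of 2 libraries. In the series text the study asks how cell cycle arrest, the DNA sensing proteins cGAS and STING, the end-joining repair factor XRCC4 and p53 bear on inflammatory signalling after irradiation, in 3 experiments. The first, of 7 MCF10A groups, holds wild-type (WT) cells given 10 Gy and a CDK1 inhibitor (CDK1i) and collected at 5 d, cGAS knockout (KO), STING KO and XRCC4 KO cells given 10 Gy and collected at 5 d, WT cells given 10 Gy with the vehicle DMSO and collected at 3 d and at 5 d, and untreated WT cells. The second, of 6 MCF10A groups, all given 10 Gy and collected at 3 d, holds the XRCC4 p53 double knockout (DKO) with and without an inhibitor of the checkpoint kinase ATR (ATRi), XRCC4 KO with and without ATRi, p53 KO, and WT cells. The third, of 3 RPE-1 groups, all given 10 Gy with ATRi and collected at 3 d, holds p53 KO cells, cells labelled WT cGAS, and WT cells. Drugs were added 1 h before irradiation and kept until collection. Lentivirus carrying CRISPR-Cas9 made the knockout lines, which were expanded from single cells, and the labels name neither the clone nor a control line that carried Cas9, so each genotype comparison sets line against line. No knockout was sequenced without irradiation, no RPE-1 group was sequenced without both irradiation and ATRi. Beyond the irradiated WT groups of the first experiment, no group is described as given DMSO.

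Total counts ran from 5590061 to 18585999 per library. Levels within 1 gene are given below as CPM, counts scaled to the library total and its composition, and levels of different genes are compared as the deposited FPKM, which divide by gene length. A gene is said to rise or fall where edgeR's quasi-likelihood test, adjusted over all genes tested, gave p below 0.05, and ± beside a log2 fold change is its standard error. Whether the 2 libraries of a group are separate cultures is not stated, so the tests measure a spread that may be technical, and in bulk RNA fewer cells of a type and less RNA per cell cannot be told apart. All 10 basal breast epithelial markers examined, KRT5 and TP63 among them, reached 1 CPM in every MCF10A library. Of 9 retinal pigment epithelial markers, 6 (RPE65, RLBP1, PMEL, TYR, TYRP1 and TTR) stayed below 1 CPM in every RPE-1 library and 3 (OTX2, MITF and BEST1) reached it in all. Of 11 mesenchymal markers, 10 reached 1 CPM in every RPE-1 library and 7 in every MCF10A library. The 2 libraries of a group differed most in the WT groups of the first experiment. Their chi-square per collagen gene was 200.5 for untreated cells, 210.3 at 3 d, 214 at 5 d and 97.5 with CDK1i. It was 28.7 in STING KO cells and at most 5.71 in the other experiments. In each of these WT groups replicate 2 had more COL12A1, COL4A1, COL4A2 and COL6A1 than replicate 1. With CDK1i COL6A1 differed little (7.29 and 7.85 CPM). Replicate 2 also had a higher mean log2 CPM of the 11 mesenchymal markers. It was 1.77 in replicate 1 and 3.57 in replicate 2 of untreated cells, and 1.29 and 2.36 with CDK1i. What part this has in the results was not tested.

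COL17A1, the transmembrane collagen of hemidesmosomes, was the most abundant collagen transcript in each of the 13 MCF10A groups, from 207 ± 46.4 FPKM in untreated cells to 832 ± 28.4 in XRCC4 KO cells with ATRi and 816 ± 9.23 in XRCC4 KO cells at 5 d (SD, n = 2). It gave between 28.2 and 85.0% of all collagen counts of an MCF10A library, against 0.032 to 0.212% in RPE-1. By FPKM, COL7A1 of the anchoring fibrils held rank 2 to 5 over these groups, COL4A5 rank 2 to 6 and its partner chain of epithelial basement membranes, COL4A6, rank 3 to 8. COL16A1, a FACIT collagen found near the epidermal junction, held rank 2 to 6, and COL4A2 rank 4 to 10, with rank 4 in untreated cells, p53 KO cells and the DKO with and without ATRi. In irradiated WT cells of the second experiment the order was COL17A1 at 509.6 ± 5.91 FPKM, COL7A1 at 90.9 ± 1.503, COL16A1 at 74.7 ± 0.778, COL4A5 at 55.5 ± 2.08 and COL4A6 at 33.6 ± 0.380, with no overlap between neighbours (SD, n = 2). In the same order of untreated cells, COL4A2, COL16A1, COL4A6 and COL12A1 overlapped their neighbours, and COL4A2 and COL12A1 differed widely between the 2 libraries. In each library all 42 collagen genes together took 0.191 to 0.421% of the counts in MCF10A and 0.222 to 0.468% in RPE-1.

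RPE-1 cells had another set. The leading transcript was COL8A1, a short-chain collagen of sheet-like networks, at 159.8 ± 13 FPKM in p53 KO cells, 491 ± 10.5 in the WT cGAS group and 349 ± 2.22 in WT cells (SD, n = 2). In WT cells COL4A2 at 171 ± 4.30 FPKM, COL4A1 at 119 ± 1.06, COL12A1 at 119 ± 1.01, COL1A1 at 44.1 ± 0.622 and COL5A2 at 37.2 ± 0.567 followed, and only COL4A1 and COL12A1 among these overlapped (SD, n = 2). Over the whole series, 10 collagen genes were higher in every RPE-1 library than in every MCF10A library on the FPKM scale, namely COL1A1, COL4A1, COL4A2, COL5A2, COL6A3, COL8A1, COL8A2, COL13A1, COL14A1 and COL18A1. COL8A1 ran from 151 to 499 FPKM (median 349) in RPE-1 and from 4.49 to 50.7 FPKM (median 11.6) in MCF10A. COL17A1 and COL4A6 were lower in every RPE-1 library, COL17A1 at 0.293 to 2.67 FPKM (median 1.93) against 174 to 852 FPKM (median 509.6) in MCF10A, and the other 30 overlapped. How many of all genes separate the lines in this way was not worked out, so these counts do not mark a trait of collagen genes. The lines were sequenced under different treatments, so these level differences were not tested.

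A median of at least 1 FPKM was reached by 14 collagen genes in MCF10A and 17 in RPE-1, 12 of them in both. Enough counts for testing were found for 25, 30 and 28 of the 42 genes in the 3 experiments, and for 21 genes in all 3. COL9A1, COL10A1, COL15A1, COL23A1, COL6A5 and COL6A6 had too few counts to be tested in any. Of the 36 tested, 33 were called in at least 1 of 16 comparisons. COL1A2, partner of COL1A1 in type I collagen, COL25A1, a neuronal transmembrane collagen, and COL5A1, the main chain of type V, were tested and called in none. COL5A1 stayed at or below 0.686 CPM in all 32 libraries, and COL1A2 at or below 0.859 CPM, while COL1A1 reached 22.8 CPM in MCF10A and 136 CPM in RPE-1.

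**Figure D1:**
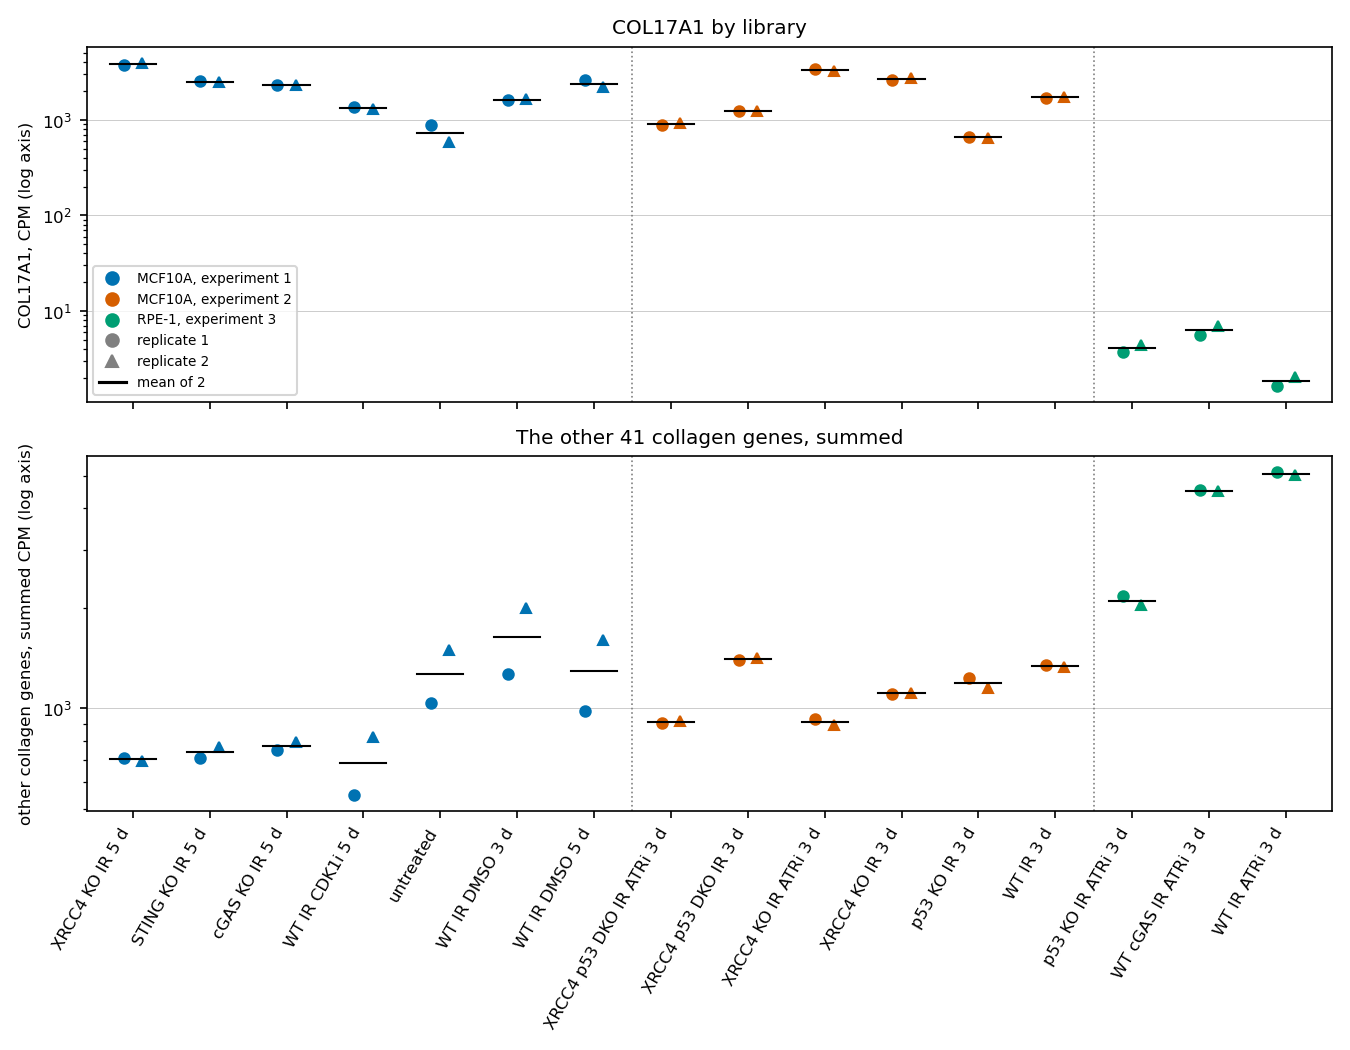
COL17A1 level and the summed level of the other 41 collagen genes in each of the 32 libraries, in CPM on log axes, by group. Circles are replicate 1, triangles replicate 2 and bars the mean of the 2. COL17A1 lies between 590 and 3937 CPM in MCF10A and at most at 7.01 CPM in RPE-1, while the other collagen genes together are highest in RPE-1 WT and WT cGAS cells.

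The region before the COL17A1 start is shown because that transcript moved most often, in 13 of 16 comparisons. The transcript fell in every test of p53 loss in MCF10A and rose in that of RPE-1 (log2 fold change 1.13 ± 0.24, edgeR). COL17A1 lies at chr10:105791044-105845760 on hg19, the build of the deposited table. The stretch is the 250 bases upstream of the RefSeq start, chr10:104085881-104086130 on the minus strand of GRCh38.p14. The capitals mark a 10-base match to a p53-family half-site, GGACATGTTT, whose first base lies 55 bases before the start. TATAAA and, on the other strand, CCAAT also lie in this stretch and are left unmarked.
COL17A1 upstream: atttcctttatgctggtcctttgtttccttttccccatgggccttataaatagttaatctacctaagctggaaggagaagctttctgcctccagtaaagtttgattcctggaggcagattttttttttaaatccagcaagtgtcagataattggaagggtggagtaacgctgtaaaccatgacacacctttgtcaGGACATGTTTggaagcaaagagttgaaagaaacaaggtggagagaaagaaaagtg
The decamer was searched as any 10 bases fitting the p53-family half-site, on both strands. A fit lies in the 250 upstream bases of 1 of the 31 collagen genes with a window, against 5.57% of 35116 RefSeq windows. The units differ, since the 31 genes have 43 windows and a fit in any of them counts for the gene. The window shown was picked because it holds the match. The match is a description of these letters, not a site shown to be bound.

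Type IV chains are encoded in head-to-head pairs, and the 2 stretches shown lie between their paired starts. COL4A1 and COL4A2 start 126 bases apart on opposite strands, and the whole stretch between them is chr13:110307158-110307283 (plus strand). Midway between the COL4A5 and COL4A6 starts, which lie 379 bases apart, is chrX:108439588-108439708 (plus strand), the 121 bases that their upstream windows share.
COL4A1/COL4A2: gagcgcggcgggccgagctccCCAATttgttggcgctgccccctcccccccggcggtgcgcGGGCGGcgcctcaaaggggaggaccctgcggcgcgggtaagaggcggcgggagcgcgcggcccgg
COL4A5/COL4A6: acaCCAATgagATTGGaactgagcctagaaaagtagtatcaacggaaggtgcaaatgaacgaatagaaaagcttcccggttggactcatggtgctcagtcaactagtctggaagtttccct
Capitals mark CCAAT, or ATTGG where it is read on the other strand, and GGGCGG. Both motifs were searched on both strands and do not overlap each other here. CCAAT is in 32% of all 35116 windows of 250 upstream bases and in 11 of the 31 matched collagen genes, GGGCGG in 42.6% and in 21. Here too genes with a fit in any window stand beside single windows. The paired genes of each stretch are compared below. In the deposited table COL4A1 and COL4A2 share 1 interval on hg19, chr13:110801310-111165374, and 27 of the 42 genes share theirs with another listed gene. By the GENCODE annotation 19 of the 42 overlap a gene on the opposite strand, COL4A1, COL4A2 and COL18A1 among them, and as no source used here states the strand setting of the counting, reads of such pairs may be split between them.

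Irradiation of WT MCF10A cells was followed by more COL17A1 and, at 5 d, by more COL1A1 and several low-abundance chains, and no collagen gene fell. At 3 d 2 of 25 tested collagen genes rose and 0 fell (6.52% of all genes called, 3.65% higher and 2.87% lower), and at 5 d 8 rose and 0 fell (29.3% of all genes called, 15.1% higher and 14.3% lower). Limma on FPKM called 1 at 3 d and 4 at 5 d, and edgeR with only the 2 groups compared in the fit called 0 and 4. The collagen genes tested had median log2 fold changes of 0.65 and 0.56 against -0.000702 and 0.00452 for all genes. COL17A1 stood at 881 and 590.0 CPM in untreated cells, 1616 and 1646 at 3 d and 2590.4 and 2203 at 5 d. Every irradiated library was above both untreated ones, and both 5 d libraries were above both 3 d libraries. The rise was significant at 3 d (log2 fold change 1.15 ± 0.17, adjusted p = 0.00880, edgeR) and at 5 d (log2 fold change 1.70 ± 0.17, adjusted p = 0.000308, edgeR), and between 3 and 5 d it did not pass (adjusted p = 0.167). With only the 2 groups in the fit the rise at 3 d lost its call (adjusted p = 0.180, edgeR, against 8.22e-10 to 0.180 over all its alternatives). COL16A1 had 28.6 and 46.9 CPM in untreated cells, 71.8 and 103 at 3 d and 51.1 and 70.1 at 5 d. It rose at 3 d (log2 fold change 1.21 ± 0.25, adjusted p = 0.0240, edgeR), where the groups did not overlap, and missed the threshold at 5 d (adjusted p = 0.0570).

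The other risers at 5 d, apart from COL1A1, were scarce. COL2A1, the fibrillar chain of cartilage, had 0.293 and 0.607 CPM untreated, 1.84 and 0.858 at 3 d and 4.74 and 4.15 at 5 d (log2 fold change 3.35 ± 0.43, adjusted p = 0.000850, edgeR). COL9A2, a cartilage FACIT chain, had no count in either untreated library, 0 and 0.343 CPM at 3 d and 1.86 and 0.889 CPM at 5 d, at least 10.5-fold higher than 3 counts over the untreated group (adjusted p = 0.0115, edgeR). COL27A1, another cartilage fibrillar chain, had 0.439 and 2.53 CPM untreated, 4.54 and 9.95 at 3 d and 3.71 and 9.66 at 5 d. The type V chain COL5A3 had 0.512 and 0.708 CPM, then 0.982 and 1.89 at 3 d and 2.82 and 3.14 at 5 d. In both genes each 5 d library lay above both untreated ones, with log2 fold changes at 5 d of 2.31 ± 0.67 (adjusted p = 0.0273) and 2.31 ± 0.68 (adjusted p = 0.0287, edgeR). COL1A1, COL4A4 and COL13A1, the last a transmembrane chain of the neuromuscular junction, also rose at 5 d, by 1.35, 1.04 and 1.60 on the log2 scale. COL1A1 had 9.37 and 7.38 CPM untreated, 10.9 and 16.5 at 3 d and 20.6 and 22.4 at 5 d.

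The more abundant basement membrane, anchoring fibril and FACIT chains were not called at 5 d. COL7A1 had 248 and 197 CPM untreated, 301 and 275 at 3 d and 206 and 333 at 5 d, with overlap between untreated and 5 d cells. COL12A1 had 84.9 and 299 CPM in untreated cells, 170.5 and 569.8 at 3 d and 114 and 417 at 5 d. COL4A1 had 36.5 and 82.2 CPM in untreated cells, 30.2 and 98.97 at 3 d and 18.8 and 57.3 at 5 d. COL4A2 had 107 and 292 CPM in untreated cells, 76.4 and 269 at 3 d and 45.97 and 125 at 5 d. In these 3 genes replicate 2 was the higher library of every group and the groups overlapped. COL6A1, a chain of beaded filaments, had 18.4 and 31.95 CPM in untreated cells, 17.9 and 42.7 at 3 d and 27.3 and 52.7 at 5 d. COL18A1, a multiplexin of basement membranes, had 6.66 and 10.3 CPM in untreated cells, 11.2 and 15.95 at 3 d and 8.73 and 15.9 at 5 d. COL8A1 had 7.76 and 46.01 CPM in untreated cells, 54.8 and 89.2 at 3 d and 41.99 and 43.9 at 5 d. None of these 3 was called. Between 3 and 5 d no collagen gene was called by edgeR (0 of 25, with 5 at an unadjusted p below 0.05, 3 called by DESeq2, and 0.263% of all genes called).

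Several of these calls were lost when 1 library was left out, which leaves its group with 1 library. COL16A1 at 3 d lost its call with only the 2 groups in the fit (adjusted p = 0.216) and without untreated replicate 1 (adjusted p = 0.0817, against 0.000315 to 0.216 over all its alternatives) or WT 3 d replicate 2 (adjusted p = 0.124). At 5 d COL5A3 lost its call whichever of the 4 libraries was left out (adjusted p = 0.0748 to 0.148, against 0.00832 to 0.190 over all its alternatives). COL9A2 lost it without untreated replicate 1 (adjusted p = 0.0607, against 0.00313 to 0.0625 over all its alternatives) or WT 5 d replicate 1 (adjusted p = 0.0625). COL27A1 lost it without untreated replicate 1 (adjusted p = 0.168, against 0.00491 to 0.287 over all its alternatives) or WT 5 d replicate 2 (adjusted p = 0.173). The same held of COL13A1 without untreated replicate 1 (adjusted p = 0.169, against 0.0175 to 0.169 over all its alternatives), WT 5 d replicate 1 (adjusted p = 0.114) or WT 5 d replicate 2 (adjusted p = 0.0616). COL4A4 lost it without untreated replicate 1 (adjusted p = 0.0819, against 0.0187 to 0.318 over all its alternatives), untreated replicate 2 (adjusted p = 0.0614) or WT 5 d replicate 1 (adjusted p = 0.106). The number called at 5 d was 3 without untreated replicate 1 and 5 without either 5 d library, and at 3 d it was 1 without untreated replicate 1 or 3 d replicate 2 and 4 without untreated replicate 2. Beside these changes the mean log2 CPM of 12 interferon-stimulated genes was 1.64 and 1.49 untreated, 4.78 and 2.89 at 3 d and 9.15 and 7.18 at 5 d; its part in them was not tested.

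With the CDK1 inhibitor, which blocks entry into mitosis, COL16A1, COL6A1, COL18A1, COL17A1, COL7A1 and 5 other collagen transcripts of irradiated WT cells were lower. At 5 d, 10 of 25 tested collagen genes fell and 0 rose against DMSO (12.1% of all genes called, 4.73% higher and 7.37% lower; limma on FPKM gave 0 higher and 5 lower collagen genes), with a median log2 fold change of -1.19 against -0.0356 for all genes. COL16A1 had 11.5 and 11.2 CPM in cells with CDK1i, against 51.1 and 70.1 in cells with DMSO (log2 fold change -2.42 ± 0.26, adjusted p = 0.00194, edgeR). COL6A1 had 7.29 and 7.85 CPM in cells with CDK1i, against 27.3 and 52.7 in cells with DMSO (log2 fold change -2.40 ± 0.44, adjusted p = 0.0104). COL18A1 had 3.99 and 3.24 CPM in cells with CDK1i, against 8.73 and 15.9 in cells with DMSO (log2 fold change -1.77 ± 0.33, adjusted p = 0.00814). In each, both CDK1i libraries were below both DMSO libraries. COL27A1 had 0.872 and 1.24 CPM in cells with CDK1i, against 3.71 and 9.66 in cells with DMSO (log2 fold change -2.68 ± 0.66, adjusted p = 0.0295, edgeR), and COL2A1 had 1.37 and 1.45 CPM in cells with CDK1i, against 4.74 and 4.15 in cells with DMSO (log2 fold change -1.65 ± 0.32, adjusted p = 0.0116). The abundant COL17A1 fell too, to 1378 and 1304 CPM in cells with CDK1i, against 2590.4 and 2203 in cells with DMSO (log2 fold change -0.84 ± 0.17). COL7A1 fell to 63.98 and 118 CPM in cells with CDK1i, against 206 and 333 in cells with DMSO (log2 fold change -1.57 ± 0.36). COL1A1, COL4A5 and COL4A6 fell by 0.98, 0.51 and 0.39 on the log2 scale.

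COL4A1 had 6.60 and 26.99 CPM in cells with CDK1i, against 18.8 and 57.3 in cells with DMSO. COL4A2 had 19.1 and 80.8 CPM in cells with CDK1i, against 45.97 and 125 in cells with DMSO. COL12A1 had 103 and 209 CPM in cells with CDK1i, against 114 and 417 in cells with DMSO. COL8A1 had 8.66 and 23.8 CPM in cells with CDK1i, against 41.99 and 43.9 in cells with DMSO. The first 3 overlapped between the groups, COL8A1 did not, and none of the 4 was called. With only the 2 groups in the fit, none of the 10 genes was called (0 of 25 by edgeR). Many of the calls were also lost when 1 library was left out. Without CDK1i replicate 2 the number called was 3, and without DMSO replicate 2 it was 5. COL27A1 lost its call without DMSO replicate 2 (adjusted p = 0.159, against 0.00474 to 0.250 over all its alternatives), CDK1i replicate 1 (adjusted p = 0.0949) or CDK1i replicate 2 (adjusted p = 0.113). COL2A1 lost it without DMSO replicate 1 (adjusted p = 0.0682, against 0.00218 to 0.140 over all its alternatives) or CDK1i replicate 2 (adjusted p = 0.0611). COL18A1 lost it without DMSO replicate 2 (adjusted p = 0.0574, against 0.00253 to 0.145 over all its alternatives) or CDK1i replicate 2 (adjusted p = 0.0611). COL6A1 lost it without CDK1i replicate 2 (adjusted p = 0.0710, against 4.52e-06 to 0.140 over all its alternatives). COL17A1 lost it without DMSO replicate 1 (adjusted p = 0.0945, against 3.66e-05 to 0.140 over all its alternatives) or CDK1i replicate 2 (adjusted p = 0.0862), while COL16A1 kept it without any 1 library and lost it with only the 2 groups in the fit (adjusted p = 0.140, against 2.71e-15 to 0.140 over all its alternatives). COL7A1 lost it without DMSO replicate 2 (adjusted p = 0.126, against 0.000159 to 0.158 over all its alternatives) or CDK1i replicate 1 (adjusted p = 0.0818). COL1A1 lost it without DMSO replicate 1 (adjusted p = 0.136, against 0.0307 to 0.224 over all its alternatives), DMSO replicate 2 (adjusted p = 0.154) or CDK1i replicate 2 (adjusted p = 0.224). COL4A6 lost it whichever of the 4 libraries was left out (adjusted p = 0.0521 to 0.0791, against 0.000276 to 0.153 over all its alternatives). With the inhibitor the mean log2 CPM of 10 proliferation genes was 5.92 and 7.23, against 4.80 and 5.32 with DMSO, and that of interferon-stimulated genes 3.35 and 1.72, against 9.15 and 7.18; their part in the collagen changes was not tested.

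The 3 knockout lines collected 5 d after irradiation had in common a near loss of COL18A1 and low COL6A1 and COL13A1. They are set against the same 2 WT libraries, so their values are given side by side and not compared with each other. Of 25 tested collagen genes, 0 rose and 4 fell in cGAS KO cells (13.5% of all genes called, 6.65% higher and 6.88% lower; limma on FPKM gave 0 higher and 2 lower collagen genes, median log2 fold change -0.97), 1 rose and 6 fell in STING KO cells (15.2% of all genes called, 7.43% higher and 7.73% lower; limma on FPKM gave 0 higher and 3 lower collagen genes, median -1.003) and 3 rose and 9 fell in XRCC4 KO cells (24.7% of all genes called, 12.4% higher and 12.4% lower; limma on FPKM gave 1 higher and 5 lower collagen genes, median -1.02), while the median of all genes lay between -0.0301 and -0.0131. COL18A1, whose C-terminal fragment is endostatin, had 0.0618 and 0.0866 CPM in cGAS KO cells, 0.0785 and 0.445 in STING KO and 0.0867 and 0.289 CPM in XRCC4 KO cells, against 8.73 and 15.9 in WT cells. Its log2 fold change was -5.57 ± 0.54 in STING KO (adjusted p = 0.000183, edgeR) and -6.01 ± 0.58 in XRCC4 KO cells (adjusted p = 0.000131, edgeR), and in cGAS KO cells 2 counts stood against 395 (ratio 0.00574, 95% counting interval 0.000692 to 0.0209). COL6A1 had 6.24 and 5.37 CPM in cGAS KO, 3.22 and 4.27 in STING KO and 4.68 and 4.63 CPM in XRCC4 KO cells, against 27.3 and 52.7 in WT cells. Every knockout library was below both WT libraries, with log2 fold changes of -2.78 ± 0.46 (adjusted p = 0.00490), -3.42 ± 0.49 (adjusted p = 0.00241) and -3.10 ± 0.48 (adjusted p = 0.00202, edgeR). COL13A1 had 1.17 and 1.39 CPM in cGAS KO, 0.628 and 1.07 in STING KO and 0.0867 and 0.675 CPM in XRCC4 KO cells, against 5.02 and 4.45 in WT cells, again without overlap (log2 fold changes -1.89 ± 0.47, -2.48 ± 0.53 and -3.65 ± 0.63). COL1A1 fell in cGAS KO and STING KO cells, with 9.64 and 11.3 CPM in cGAS KO and 7.53 and 14.05 in STING KO, against 20.6 and 22.4 in WT cells (adjusted p = 0.0369 and 0.0400, edgeR); in XRCC4 KO cells it had 14.7 and 16.6 and was not called.

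The other beaded filament chains were near their detection limit. COL6A2 had 1 count in STING KO cells against 45 in WT cells (ratio 0.0291, 95% counting interval 0.000721 to 0.171) and 0 in XRCC4 KO cells, at least 10.5-fold lower taking 3 counts over the XRCC4 KO group as the floor. COL6A3 had 2 counts in XRCC4 KO cells, against 46 in WT cells (ratio 0.0624, 95% counting interval 0.00734 to 0.239). All 3 differences were called by edgeR (adjusted p = 0.0428, 0.0236 and 0.0464), and each rests on counts that came mostly from WT replicate 2. COL2A1 rose, with 12.9 and 14.3 CPM in XRCC4 KO cells, against 4.74 and 4.15 in WT cells (log2 fold change 1.61 ± 0.26, adjusted p = 0.00199, edgeR), and so did COL17A1, with 3769 and 3937 CPM in XRCC4 KO cells, against 2590.4 and 2203 in WT cells (log2 fold change 0.69 ± 0.17, adjusted p = 0.0151). COL17A1 in cGAS KO cells (2309.6 and 2296 CPM) and in STING KO cells (2535 and 2472 CPM) was not called. COL4A4, a chain of the kidney-type basement membrane network, had 6.28 and 4.71 CPM in STING KO and 4.42 and 5.98 in XRCC4 KO cells, against 3.37 and 2.96 in WT cells, and rose in both (log2 fold changes 0.80 ± 0.23 and 0.71 ± 0.23). COL4A2 fell in XRCC4 KO cells too, with 11.2 and 11.5 CPM in XRCC4 KO cells, against 45.97 and 125 in WT cells. COL16A1 had 32.1 and 27.8 CPM in XRCC4 KO cells, against 51.1 and 70.1 in WT cells. COL27A1 and COL4A5 also fell there. COL4A5 also fell in STING KO cells.

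COL12A1 had 77.3 and 72.4 CPM in cGAS KO cells, 109 and 93.6 in STING KO cells and 51.8 and 59.99 in XRCC4 KO cells, against 114 and 417 in WT cells. COL7A1 had 138 and 172 CPM in cGAS KO cells, 85.8 and 165 in STING KO cells and 159 and 139 in XRCC4 KO cells, against 206 and 333 in WT cells. COL4A1 had 13.04 and 14.4 CPM in cGAS KO cells, 21.5 and 14.3 in STING KO cells and 7.63 and 8.58 in XRCC4 KO cells, against 18.8 and 57.3 in WT cells. COL8A1 had 22.4 and 21.5 CPM in cGAS KO cells, 36.1 and 20.7 in STING KO cells and 36.9 and 37.5 in XRCC4 KO cells, against 41.99 and 43.9 in WT cells. Of these the COL4A1 values of STING KO and WT cells overlapped, the others did not, and none of the 4 was called in any of the 3 lines. Among the calls, COL18A1 and, in STING KO and XRCC4 KO cells, COL6A1 held without any 1 library. COL6A1 in cGAS KO cells lost its call without cGAS KO replicate 1 (adjusted p = 0.0570, against 3.85e-08 to 0.0570 over all its alternatives) or cGAS KO replicate 2 (adjusted p = 0.0568). COL13A1 lost it in cGAS KO cells whichever of the 4 libraries was left out (adjusted p = 0.0744 to 0.195, against 0.0104 to 0.195 over all its alternatives) and in STING KO cells without WT replicate 1 (adjusted p = 0.0505, against 0.00324 to 0.170 over all its alternatives) or STING KO replicate 1 (adjusted p = 0.0936). COL1A1 lost it in cGAS KO whichever of the 4 libraries was left out (adjusted p = 0.0995 to 0.235, against 0.0101 to 0.235 over all its alternatives) and in STING KO cells without WT replicate 1 (adjusted p = 0.106, against 0.0210 to 0.231 over all its alternatives), WT replicate 2 (adjusted p = 0.152) or STING KO replicate 1 (adjusted p = 0.231). COL4A4 lost its call in STING KO cells without WT replicate 1 (adjusted p = 0.111, against 0.0411 to 0.381 over all its alternatives), WT replicate 2 (adjusted p = 0.199) or STING KO replicate 1 (adjusted p = 0.246). In XRCC4 KO cells it did so whichever of the 4 libraries was left out (adjusted p = 0.0629 to 0.296, against 0.0485 to 0.501 over all its alternatives). COL6A2 lost its call in STING KO cells without WT replicate 2 (adjusted p = 0.338, against 0.0193 to 0.338 over all its alternatives), STING KO replicate 1 (adjusted p = 0.235) or STING KO replicate 2 (adjusted p = 0.148). In XRCC4 KO cells it did so without WT replicate 2 (adjusted p = 0.167, against 0.00879 to 0.167 over all its alternatives), XRCC4 KO replicate 1 (adjusted p = 0.122) or XRCC4 KO replicate 2 (adjusted p = 0.110). COL6A3 lost its call in XRCC4 KO cells without WT replicate 2 (adjusted p = 0.549, against 0.00767 to 0.549 over all its alternatives), XRCC4 KO replicate 1 (adjusted p = 0.262) or XRCC4 KO replicate 2 (adjusted p = 0.127). There COL4A2 lost it whichever of the 4 libraries was left out (adjusted p = 0.0512 to 0.228, against 0.00477 to 0.228 over all its alternatives). COL16A1 lost it without WT replicate 2 (adjusted p = 0.104, against 0.00152 to 0.109 over all its alternatives), XRCC4 KO replicate 1 (adjusted p = 0.0650) or XRCC4 KO replicate 2 (adjusted p = 0.109). COL27A1 lost it without WT replicate 2 (adjusted p = 0.236, against 0.00657 to 0.236 over all its alternatives), XRCC4 KO replicate 1 (adjusted p = 0.169) or XRCC4 KO replicate 2 (adjusted p = 0.153). COL17A1 lost it without WT replicate 2 (adjusted p = 0.113, against 0.000386 to 0.113 over all its alternatives), XRCC4 KO replicate 1 (adjusted p = 0.0620) or XRCC4 KO replicate 2 (adjusted p = 0.0846). Counts of calls ran from 1 (without either cGAS KO library; 2 without WT replicate 2) to 3 in cGAS KO, from 3 (without STING KO replicate 1; 4 without WT replicate 2) to 7 in STING KO (3 with only the 2 groups in the fit), and from 5 (without WT replicate 2 or either XRCC4 KO library) to 11 in XRCC4 KO cells.

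**Figure D2:**
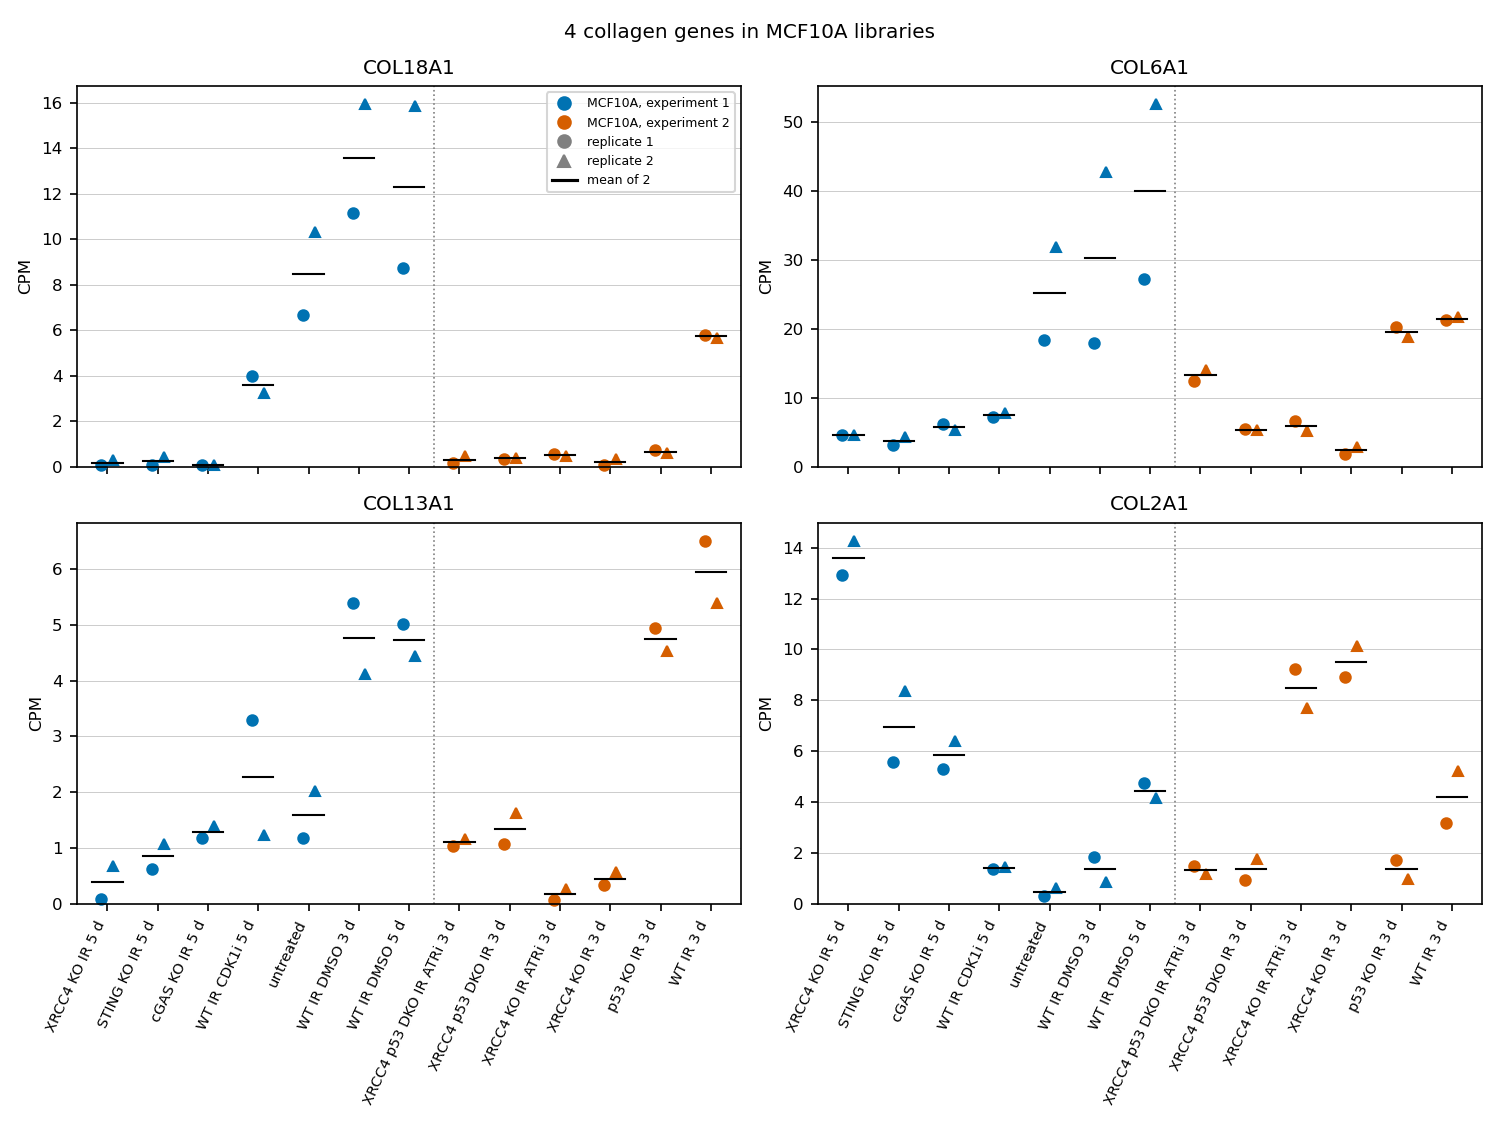
COL18A1, COL6A1, COL13A1 and COL2A1 levels in the 26 MCF10A libraries, in CPM on linear axes from 0. Circles are replicate 1, triangles replicate 2 and bars the mean of the 2. COL18A1 is at most 0.736 CPM in every knockout library and at least 3.24 CPM in every WT library, and COL2A1 is highest in the XRCC4 KO groups.

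In the second experiment, p53 loss alone was accompanied by less COL17A1, COL16A1, COL7A1, COL4A5 and COL4A6 and by more COL12A1, COL4A1 and COL4A2. In irradiated p53 KO cells 6 of 30 tested collagen genes rose and 9 fell against WT cells (52.9% of all genes called, 25.9% higher and 27% lower; limma on FPKM gave 5 higher and 8 lower collagen genes), with a median log2 fold change of -0.077 against 0.0125 for all genes. COL17A1 had 669.9 and 640.2 CPM in p53 KO cells, against 1718 and 1733 in WT cells (log2 fold change -1.40 ± 0.038, adjusted p = 1.80e-20, edgeR). COL16A1 had 34.2 and 27.3 CPM in p53 KO cells, against 98.4 and 101 in WT cells (log2 fold change -1.68 ± 0.073, adjusted p = 4.08e-15). COL4A6 had 103 and 103 CPM in p53 KO cells, against 199 and 199.9 in WT cells (log2 fold change -0.95 ± 0.044, adjusted p = 8.42e-16). All 3 were lower in both p53 KO libraries by far more than replicates differed. COL18A1 had 0.736 and 0.591 CPM in p53 KO cells, against 5.82 and 5.68 in WT cells (log2 fold change -3.08 ± 0.26, adjusted p = 2.32e-10). COL2A1 had 1.74 and 0.985 CPM in p53 KO cells, against 3.18 and 5.21 in WT cells (log2 fold change -1.60 ± 0.30, adjusted p = 9.29e-05). COL7A1 fell less, with 301 and 263 CPM in p53 KO cells, against 406 and 394 in WT cells (log2 fold change -0.50 ± 0.050). In the other direction COL12A1, a FACIT chain of stressed and dense connective tissue, had 265 and 265 CPM in p53 KO cells, against 134 and 134 in WT cells (log2 fold change 0.98 ± 0.042, adjusted p = 2.10e-16, edgeR). COL4A1 had 77.8 and 66.02 CPM in p53 KO cells, against 52.7 and 46.1 in WT cells (log2 fold change 0.55 ± 0.081, adjusted p = 1.62e-05). COL4A2 had 200.4 and 177 CPM in p53 KO cells, against 111 and 103 in WT cells (log2 fold change 0.83 ± 0.059, adjusted p = 1.14e-10). COL6A3 had 3.10 and 2.96 CPM in p53 KO cells, against 0.346 and 1.11 in WT cells (log2 fold change 1.99 ± 0.32, adjusted p = 9.76e-06). COL9A2 rose by 0.55 ± 0.20, a call lost without WT replicate 1 (adjusted p = 0.0599, against 0.0228 to 0.336 over all its alternatives), WT replicate 2 (adjusted p = 0.110) or p53 KO replicate 1 (adjusted p = 0.164). COL6A1 (20.4 and 18.8 CPM in p53 KO cells, against 21.3 and 21.8 in WT cells) and COL8A1 (46.4 and 45.7 CPM in p53 KO cells, against 47.8 and 45.8 in WT cells) were not called, and COL1A1 rose by 0.37 ± 0.093, with 22.4 and 21.6 CPM in p53 KO cells, against 17.6 and 16.6 in WT cells. The proliferation genes averaged 7.77 and 7.84 log2 CPM in p53 KO cells, against 5.63 and 5.59 in WT cells. Of the basal epithelial markers 5 rose and 5 fell of 10 tested, and of the mesenchymal markers 4 rose and 1 fell of 10 tested. The part of these lists was not tested.

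XRCC4 loss in cells with p53 gave a partly different pattern. COL4A5, COL7A1, COL8A2, COL16A1, COL18A1 and COL27A1 fell as they had in p53 KO cells against the same WT libraries. COL2A1 and COL17A1 rose, and COL1A1, COL4A1, COL4A2, COL9A2 and COL12A1 fell, each opposite to p53 KO cells. Of 30 tested collagen genes 5 rose and 13 fell at 3 d in XRCC4 KO against WT cells (56.1% of all genes called, 28.6% higher and 27.5% lower; limma on FPKM gave 2 higher and 12 lower collagen genes, median -0.35 against -0.0115 for all genes). COL18A1 had 0.0657 and 0.351 CPM in XRCC4 KO cells, against 5.82 and 5.68 in WT cells (log2 fold change -4.77 ± 0.36, adjusted p = 1.75e-11, edgeR). COL13A1 had 0.328 and 0.562 CPM in XRCC4 KO cells, against 6.51 and 5.38 in WT cells (log2 fold change -3.72 ± 0.31, adjusted p = 8.16e-11). COL6A1 had 1.90 and 2.88 CPM in XRCC4 KO cells, against 21.3 and 21.8 in WT cells (log2 fold change -3.18 ± 0.16, adjusted p = 2.33e-15). All 3 fell in the XRCC4 KO line at 5 d as well. Across the 2 times 10 collagen genes were called in both, all in the same direction, in libraries that the fits do not share. Over all 3152 genes called at both times 97.4% had the same direction, so the collagen share lies near that of all genes. COL4A2 had 41.4 and 45.5 CPM in XRCC4 KO cells, against 111 and 103 in WT cells (log2 fold change -1.30 ± 0.072, adjusted p = 1.19e-12). COL4A1 had 27.2 and 29.1 CPM in XRCC4 KO cells, against 52.7 and 46.1 in WT cells (log2 fold change -0.81 ± 0.10). COL9A2 had 0.657 and 0.773 CPM in XRCC4 KO cells, against 2.63 and 2.52 in WT cells (log2 fold change -1.84 ± 0.31, adjusted p = 1.19e-05). Of the risers COL17A1 had 2633 and 2727 CPM in XRCC4 KO cells, against 1718 and 1733 in WT cells (log2 fold change 0.63 ± 0.036, adjusted p = 6.60e-14). COL2A1 had 8.93 and 10.1 CPM in XRCC4 KO cells, against 3.18 and 5.21 in WT cells (log2 fold change 1.15 ± 0.20, adjusted p = 3.13e-05). COL5A3 and COL4A4 rose at low levels, by 0.81 and 0.64 on the log2 scale, and COL8A1 by 0.22 ± 0.065, with 54.2 and 54.9 CPM in XRCC4 KO cells, against 47.8 and 45.8 in WT cells. COL12A1, COL7A1 and COL1A1 fell by 0.40, 0.22 and 0.93, and COL8A2 had 0 counts in XRCC4 KO cells, against 26 in WT cells, at least 8.10-fold lower. The COL4A4 call was lost without XRCC4 KO replicate 2 (adjusted p = 0.0714, against 0.00390 to 0.267 over all its alternatives) and that of COL8A1 without WT replicate 2 (adjusted p = 0.0684, against 0.00312 to 0.917 over all its alternatives).

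COL4A1 and COL4A2 were higher in the DKO than in p53 KO cells. In the DKO against p53 KO, 12 of 30 collagen genes rose and 8 fell (49.7% of all genes called, 24.6% higher and 25% lower, median 0.35 against -0.000261). Limma on FPKM gave 6 higher and 5 lower collagen genes. COL4A1 had 170.3 and 164 CPM in the DKO, against 77.8 and 66.02 in p53 KO cells (log2 fold change 1.21 ± 0.070, adjusted p = 9.68e-11, edgeR). COL4A2 had 323 and 322 CPM in the DKO, against 200.4 and 177 in p53 KO cells (log2 fold change 0.77 ± 0.054). COL16A1 had 82.5 and 85.97 CPM in the DKO, against 34.2 and 27.3 in p53 KO cells (log2 fold change 1.44 ± 0.074, adjusted p = 1.24e-13). COL6A3 had 12.8 and 11.99 CPM in the DKO, against 3.10 and 2.96 in p53 KO cells (log2 fold change 2.03 ± 0.16, adjusted p = 7.08e-11). None of these overlapped. COL5A3 had 4.48 and 4.60 CPM in the DKO, against 2.05 and 1.64 in p53 KO cells (log2 fold change 1.28 ± 0.21, adjusted p = 9.85e-06). COL17A1 had 1233 and 1244 CPM in the DKO, against 669.9 and 640.2 in p53 KO cells (log2 fold change 0.92 ± 0.037). COL7A1 and COL8A1 rose by 0.33 and 0.60. Among the fallers COL6A1 had 5.43 and 5.30 CPM in the DKO, against 20.4 and 18.8 in p53 KO cells (log2 fold change -1.87 ± 0.12, adjusted p = 1.75e-12, edgeR). COL13A1 had 1.06 and 1.63 CPM in the DKO, against 4.94 and 4.53 in p53 KO cells (log2 fold change -1.82 ± 0.23, adjusted p = 2.96e-07). COL12A1 had 118 and 117 CPM in the DKO, against 265 and 265 in p53 KO cells (log2 fold change -1.18 ± 0.042, adjusted p = 8.84e-18). COL1A1 had 10.3 and 11.5 CPM in the DKO, against 22.4 and 21.6 in p53 KO cells (log2 fold change -1.02 ± 0.10, adjusted p = 3.42e-09). COL20A1, a FACIT chain, rose by 1.12 ± 0.41, and COL9A2 fell by 0.49, a direction that turned to 0.19 on the FPKM scale. COL20A1 lost its call without p53 KO replicate 1 (adjusted p = 0.158, against 0.0236 to 0.298 over all its alternatives), DKO replicate 1 (adjusted p = 0.0734) or DKO replicate 2 (adjusted p = 0.0878). COL9A2 lost it without p53 KO replicate 1 (adjusted p = 0.227, against 0.0324 to 0.394 over all its alternatives) or DKO replicate 2 (adjusted p = 0.245). COL18A1 stayed low, at 0.336 and 0.407 CPM in the DKO, against 0.736 and 0.591 in p53 KO cells, and was not called. Of the mesenchymal markers 10 rose and 0 fell of 10 tested (median log2 fold change 0.90), with a summed level of 1699 and 1759.8 CPM in the DKO, against 1024 and 982 in p53 KO cells. All 10 proliferation genes rose (median 0.34), and of the basal epithelial markers 5 rose and 5 fell of 10 tested. The part of these lists in the collagen changes was not tested.

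The DKO against XRCC4 KO is the comparison of p53 loss in cells without XRCC4, and 11 of 30 collagen genes rose and 6 fell (64.9% of all genes called, 32.2% higher and 32.7% lower; limma on FPKM gave 12 higher and 4 lower collagen genes, median 0.60 against 0.0214). COL4A1 had 170.3 and 164 CPM in the DKO, against 27.2 and 29.1 in XRCC4 KO cells (log2 fold change 2.57 ± 0.083, adjusted p = 7.79e-15, edgeR). COL4A2 had 323 and 322 CPM in the DKO, against 41.4 and 45.5 in XRCC4 KO cells (log2 fold change 2.89 ± 0.066, adjusted p = 8.63e-20). COL6A3 had 12.8 and 11.99 CPM in the DKO, against 0.591 and 0.211 in XRCC4 KO cells (log2 fold change 4.90 ± 0.27, adjusted p = 1.19e-14). COL20A1 and COL9A2, scarce FACIT chains, rose by 2.29 and 1.90, with 1.01 and 1.05 CPM of COL20A1 in the DKO and 0.263 and 0.140 in XRCC4 KO cells, and 2.97 and 2.39 CPM of COL9A2 in the DKO and 0.657 and 0.773 in XRCC4 KO cells. COL17A1 had 1233 and 1244 CPM in the DKO, against 2633 and 2727 in XRCC4 KO cells (log2 fold change -1.11 ± 0.037, adjusted p = 3.06e-19). COL2A1 had 0.952 and 1.75 CPM in the DKO, against 8.93 and 10.1 in XRCC4 KO cells (log2 fold change -2.82 ± 0.25, adjusted p = 1.58e-09). COL4A5 had 94.2 and 93.9 CPM in the DKO, against 202 and 193 in XRCC4 KO cells (log2 fold change -1.07 ± 0.043, adjusted p = 2.46e-17). COL4A6 had 134 and 132 CPM in the DKO, against 207 and 208 in XRCC4 KO cells (log2 fold change -0.64 ± 0.043, adjusted p = 7.98e-13). The partner chains COL4A5 and COL4A6 were lower in both DKO libraries while the COL4A1 and COL4A2 chains were higher in both. COL4A4 fell by 0.93, and COL28A1 by 1.29, which was 0.030 on the FPKM scale. COL28A1 lost its call without XRCC4 KO replicate 1 (adjusted p = 0.674, against 0.0115 to 0.865 over all its alternatives), DKO replicate 1 (adjusted p = 0.0645) or DKO replicate 2 (adjusted p = 0.220). COL12A1, COL6A1, COL8A1 and COL13A1 rose by 0.20, 1.17, 0.36 and 1.59, and COL7A1 was not called (347 and 361 CPM in the DKO, against 343 and 343 in XRCC4 KO cells). Proliferation genes averaged 8.13 and 8.12 log2 CPM in the DKO, against 5.01 and 4.93 in XRCC4 KO cells, and mesenchymal markers 3.25 and 3.37, against 2.45 and 2.57. Of the basal epithelial markers 2 rose and 7 fell of 10 tested (median log2 fold change -0.70). The part of these lists was not tested.

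The effect of XRCC4 loss differed between p53 backgrounds for 19 of 30 collagen genes, 14 with a more positive and 5 with a more negative effect in p53 KO cells (43.7% of all genes called, 20.9% higher and 22.8% lower; limma on FPKM gave 9 higher and 0 lower collagen genes). For COL4A2 the effect of XRCC4 loss was 0.77 ± 0.054 in p53 KO and -1.30 ± 0.072 in p53 WT cells, a difference of 2.07 ± 0.090 (adjusted p = 5.83e-14, edgeR), and for COL4A1 1.21 ± 0.070 and -0.81 ± 0.10, a difference of 2.02 ± 0.12 (adjusted p = 2.51e-10). These effects have opposite signs in the 2 backgrounds. For COL18A1 and COL13A1 the difference was 3.92 ± 0.78 (adjusted p = 0.000178) and 1.90 ± 0.46 (adjusted p = 0.00156); COL18A1 was already low in p53 KO cells. COL6A3 differed by 2.92 ± 0.57 (adjusted p = 0.000161), a call lost without WT replicate 2 (adjusted p = 0.112, against 1.20e-05 to 0.177 over all its alternatives). In the negative direction COL12A1 fell more with p53 lost, by a difference of -0.78 ± 0.063 (adjusted p = 1.55e-10), and COL2A1, COL4A4, COL5A2 and COL4A5 differed by -1.21, -0.91, -0.49 and -0.18. DESeq2 did not call COL4A4 (adjusted p = 0.141, against 0.00778 to 0.232 over all its alternatives). COL2A1 lost its call without WT replicate 1 (adjusted p = 0.0761, against 0.00490 to 0.376 over all its alternatives), p53 KO replicate 1 (adjusted p = 0.376), XRCC4 KO replicate 2 (adjusted p = 0.0662) or DKO replicate 1 (adjusted p = 0.163). COL5A2 lost it without XRCC4 KO replicate 1 (adjusted p = 0.0764, against 0.0121 to 0.176 over all its alternatives). COL4A5 lost it without XRCC4 KO replicate 1 (adjusted p = 0.0829, against 0.00838 to 0.372 over all its alternatives).

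**Figure D3:**
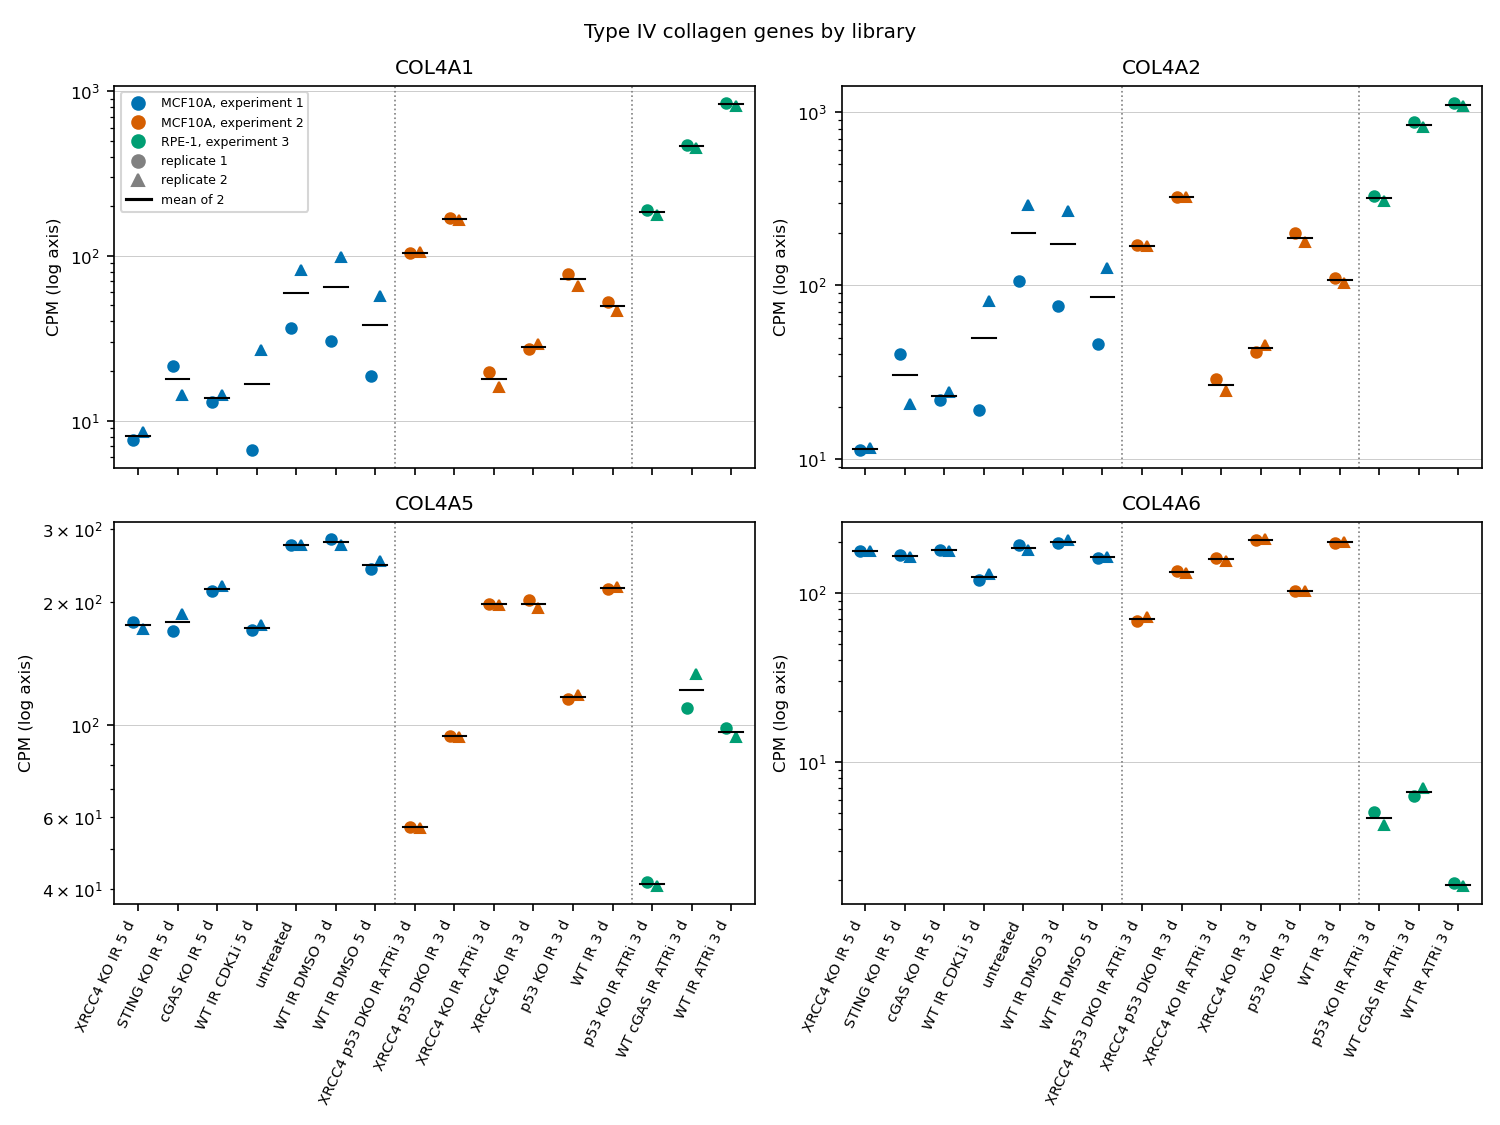
COL4A1, COL4A2, COL4A5 and COL4A6 levels in all 32 libraries, in CPM on log axes, by group. Circles are replicate 1, triangles replicate 2 and bars the mean of the 2. COL4A1 and COL4A2 are highest in RPE-1 WT and WT cGAS cells and, within MCF10A at 3 d of the second experiment, in the DKO, where COL4A5 and COL4A6 are lower than in XRCC4 KO cells.

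ATR inhibition in irradiated XRCC4 KO cells was accompanied by less COL8A1 and COL4A1 and by more COL6A1 and COL17A1. COL12A1 and COL4A2 were lower in CPM but not in FPKM. In XRCC4 KO cells 5 of 30 rose and 8 fell with ATRi (17% of all genes called, 6.67% higher and 10.3% lower, median 0.23 against 0.00301). Limma on FPKM gave 2 higher and 3 lower collagen genes. COL8A1 had 27.2 and 28.5 CPM in XRCC4 KO cells with ATRi, against 54.2 and 54.9 in XRCC4 KO cells (log2 fold change -0.97 ± 0.072, adjusted p = 1.43e-10, edgeR). COL12A1 had 57.5 and 56.1 CPM in XRCC4 KO cells with ATRi, against 98.6 and 105 in XRCC4 KO cells (log2 fold change -0.84 ± 0.052, adjusted p = 4.90e-12). COL4A2 had 28.9 and 24.7 CPM in XRCC4 KO cells with ATRi, against 41.4 and 45.5 in XRCC4 KO cells (log2 fold change -0.69 ± 0.089, adjusted p = 6.57e-06). COL4A1 had 19.7 and 15.9 CPM in XRCC4 KO cells with ATRi, against 27.2 and 29.1 in XRCC4 KO cells (log2 fold change -0.66 ± 0.12, adjusted p = 0.000651). No library with ATRi overlapped those without in CPM. In FPKM the libraries overlapped for COL12A1, with 8.91 and 10.9 with ATRi against 10.3 and 9.88 without. They also overlapped for COL4A2, with 7.93 and 5.71 with ATRi against 6.84 and 6.96 without. COL7A1 fell by 0.45, with 255 and 248 CPM in XRCC4 KO cells with ATRi, against 343 and 343 in XRCC4 KO cells, and COL4A4 by 0.65. COL6A1 rose, with 6.62 and 5.23 CPM in XRCC4 KO cells with ATRi, against 1.90 and 2.88 in XRCC4 KO cells (log2 fold change 1.32 ± 0.21, adjusted p = 4.32e-05). COL17A1 also rose, with 3413 and 3268 CPM in XRCC4 KO cells with ATRi, against 2633 and 2727 in XRCC4 KO cells (log2 fold change 0.32 ± 0.036, adjusted p = 2.93e-07). COL16A1 rose as well, with 118 and 108 CPM in XRCC4 KO cells with ATRi, against 82.2 and 79.2 in XRCC4 KO cells (log2 fold change 0.49 ± 0.064, adjusted p = 5.54e-06). COL5A3 and COL1A1 rose by 0.84 and 0.45. COL1A1 lost its call without XRCC4 KO replicate 1 (adjusted p = 0.243, against 0.0115 to 0.978 over all its alternatives) or XRCC4 KO ATRi replicate 1 (adjusted p = 0.158). COL4A4 lost it without XRCC4 KO replicate 2 (adjusted p = 0.183, against 0.0154 to 0.321 over all its alternatives), XRCC4 KO ATRi replicate 1 (adjusted p = 0.0621) or XRCC4 KO ATRi replicate 2 (adjusted p = 0.0879).

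In the DKO, 11 of 30 collagen genes rose and 10 fell with ATRi (58.5% of all genes called, 26.1% higher and 32.4% lower; limma on FPKM gave 11 higher and 6 lower collagen genes, median 0.22 against -0.0237). COL17A1 and COL7A1 of the epithelial junction fell, and of the 6 basement membrane chains COL4A1, COL4A2, COL4A5 and COL4A6 fell and COL4A3 and COL4A4 rose. COL17A1 had 895 and 939 CPM in the DKO with ATRi, against 1233 and 1244 in the DKO (log2 fold change -0.43 ± 0.037). COL7A1 had 179 and 194 CPM in the DKO with ATRi, against 347 and 361 in the DKO (log2 fold change -0.92 ± 0.051, adjusted p = 5.74e-13, edgeR). COL4A6 had 68.2 and 72.1 CPM in the DKO with ATRi, against 134 and 132 in the DKO (log2 fold change -0.92 ± 0.046, adjusted p = 5.61e-15). COL4A5 had 56.6 and 56.3 CPM in the DKO with ATRi, against 94.2 and 93.9 in the DKO (log2 fold change -0.74 ± 0.048, adjusted p = 1.10e-12). COL4A2 had 171 and 168 CPM in the DKO with ATRi, against 323 and 322 in the DKO (log2 fold change -0.93 ± 0.054, adjusted p = 3.30e-12). COL4A1 had 104 and 106 CPM in the DKO with ATRi, against 170.3 and 164 in the DKO (log2 fold change -0.68 ± 0.066). COL6A3 had 4.83 and 4.52 CPM in the DKO with ATRi, against 12.8 and 11.99 in the DKO (log2 fold change -1.41 ± 0.14, adjusted p = 3.46e-09). Every library with ATRi lay below both without it in these 7 genes. COL6A1 rose, with 12.46 and 14.1 CPM in the DKO with ATRi, against 5.43 and 5.30 in the DKO (log2 fold change 1.31 ± 0.13, adjusted p = 3.35e-09). COL6A2, its neighbour on chromosome 21, had 1.43 and 1.52 CPM in the DKO with ATRi, against 0.224 and 0.116 in the DKO (log2 fold change 3.06 ± 0.49, adjusted p = 7.58e-06), and COL4A3, a chain of the kidney-type network, 1.98 and 1.62 CPM in the DKO with ATRi, against 0.392 and 0.698 in the DKO (log2 fold change 1.70 ± 0.37, adjusted p = 0.000363). COL26A1 and COL20A1 rose by 2.85 and 1.19. COL26A1 had 1.04 and 1.11 CPM in the DKO with ATRi, against 0.224 and 0.0582 in the DKO. COL20A1 had 2.09 and 2.59 CPM in the DKO with ATRi, against 1.01 and 1.05 in the DKO. DESeq2 called neither COL26A1 (adjusted p = 0.0650, against 3.58e-05 to 0.0650 over all its alternatives) nor COL20A1 (adjusted p = 0.129, against 0.000410 to 0.129 over all its alternatives). COL1A1 had 22.8 and 21.4 CPM in the DKO with ATRi, against 10.3 and 11.5 in the DKO (log2 fold change 1.02 ± 0.10). COL12A1 had 80 and 82.3 CPM in the DKO with ATRi, against 118 and 117 in the DKO (log2 fold change -0.53 ± 0.046). COL8A1 fell slightly, by 0.23 ± 0.057, and this turned to 0.13 on the FPKM scale. Interferon-stimulated genes averaged 7.79 and 7.79 log2 CPM with ATRi, against 2.77 and 2.80 without, and proliferation genes 6.96 and 6.96, against 8.13 and 8.12. Of the basal epithelial markers 1 rose and 6 fell of 10 tested (median log2 fold change -0.54); the part of these lists in the collagen changes was not tested.

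Between the inhibited lines, 18 of 30 collagen genes rose and 6 fell in the DKO against XRCC4 KO, both with ATRi (71.8% of all genes called, 35.7% higher and 36.1% lower; limma on FPKM gave 20 higher and 4 lower collagen genes, median 0.97 against 0.0222). COL17A1 had 895 and 939 CPM in the DKO with ATRi, against 3413 and 3268 in XRCC4 KO cells with ATRi (log2 fold change -1.87 ± 0.038, adjusted p = 9.11e-24, edgeR). COL4A5 had 56.6 and 56.3 CPM in the DKO with ATRi, against 197 and 196 in XRCC4 KO cells with ATRi (log2 fold change -1.80 ± 0.045, adjusted p = 7.56e-22). COL4A6 had 68.2 and 72.1 CPM in the DKO with ATRi, against 162 and 155 in XRCC4 KO cells with ATRi (log2 fold change -1.17 ± 0.046, adjusted p = 7.67e-18). COL2A1 had 1.48 and 1.15 CPM in the DKO with ATRi, against 9.22 and 7.70 in XRCC4 KO cells with ATRi (log2 fold change -2.69 ± 0.25, adjusted p = 2.21e-09). In all 4 the DKO libraries were the lower. COL7A1 and COL16A1 fell by 0.42 and 0.37, but on the FPKM scale, where the median of all genes is shifted by 0.343, both were higher in the DKO, by 0.23 and 0.26. COL6A2 had 59 counts in the DKO and 0 in XRCC4 KO cells, at least 15.1-fold higher, and COL26A1 43 against 2 (ratio 16.5, 95% counting interval 4.30 to 141). COL4A3 had 1.98 and 1.62 CPM in the DKO with ATRi, against 0.445 and 0.0670 in XRCC4 KO cells with ATRi (log2 fold change 2.74 ± 0.47, adjusted p = 1.11e-05), COL9A3, a cartilage FACIT chain, 1.21 and 1.06 CPM in the DKO with ATRi, against 0.254 and 0.0670 in XRCC4 KO cells with ATRi (log2 fold change 2.73 ± 0.59, adjusted p = 0.000197). COL13A1 had 1.04 and 1.15 CPM in the DKO with ATRi, against 0.0636 and 0.268 in XRCC4 KO cells with ATRi (log2 fold change 2.70 ± 0.56, adjusted p = 0.000123). COL4A1, COL4A2, COL6A1, COL8A1, COL12A1 and COL1A1 rose by 2.55, 2.66, 1.17, 1.09, 0.51 and 0.86 on the log2 scale. Of the basal epithelial markers 1 rose and 9 fell of 10 tested (median log2 fold change -1.25), with a summed level of 12227 and 12491 CPM in the DKO with ATRi, against 30757 and 28947 in XRCC4 KO cells with ATRi. Of the mesenchymal markers 5 rose and 1 fell of 10 tested (median 0.62), with a summed level of 985 and 1001 CPM in the DKO with ATRi, against 711 and 693 in XRCC4 KO cells with ATRi. All 3 endothelial markers and all 10 proliferation genes tested rose (medians 1.55 and 3.30). The part of these lists in the collagen changes was not tested.

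The ATRi effect itself differed between the DKO and XRCC4 KO for 11 of 30 collagen genes, 5 more positive and 6 more negative in the DKO (34% of all genes called, 13% higher and 21% lower; limma on FPKM gave 5 higher and 1 lower collagen genes). For COL17A1 it was -0.43 ± 0.037 in the DKO and 0.32 ± 0.036 in XRCC4 KO cells, a difference of -0.75 ± 0.052 (adjusted p = 1.84e-11, edgeR), and for COL4A5 -0.74 ± 0.048 and -0.002 ± 0.041, a difference of -0.73 ± 0.063 (adjusted p = 1.16e-09). COL4A6, COL7A1 and COL6A3 differed by -0.53 ± 0.063 (adjusted p = 2.09e-07), -0.47 ± 0.072 (adjusted p = 1.97e-05) and -2.22 ± 0.57 (adjusted p = 0.00361). COL4A3 and COL4A4 differed by 3.12 ± 0.72 (adjusted p = 0.00132) and 1.42 ± 0.26 (adjusted p = 0.000116), with a rise in the DKO in both and, in XRCC4 KO cells, a fall of COL4A4 and an uncalled -1.42 of COL4A3. COL8A1 differed by 0.73 ± 0.092 (adjusted p = 6.16e-07) and COL1A1 by 0.57 ± 0.16 (adjusted p = 0.00708), a call that was lost without XRCC4 KO replicate 2 (adjusted p = 0.109, against 0.00437 to 0.109 over all its alternatives). The COL12A1 difference of 0.31 ± 0.069 (adjusted p = 0.000870) had the opposite sign on the FPKM scale, -0.22. XRCC4 KO and DKO libraries enter several of these comparisons, so their values share samples.

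In RPE-1 cells, all irradiated and given ATRi, p53 loss was accompanied by less of the 6 most abundant collagen transcripts of WT cells, COL8A1, COL4A2, COL4A1, COL12A1, COL1A1 and COL5A2. In p53 KO against WT cells, 8 of 28 tested collagen genes rose and 16 fell (66.7% of all genes called, 34.2% higher and 32.5% lower; limma on FPKM gave 7 higher and 13 lower collagen genes, median -0.53 against 0.0325), and the 42 genes together took 0.234 and 0.222% of the library in p53 KO cells, against 0.468 and 0.455% in WT cells. COL4A1 had 189 and 178 CPM in p53 KO cells, against 842 and 817 in WT cells (log2 fold change -2.18 ± 0.044, adjusted p = 1.52e-17, edgeR). COL4A2 had 326 and 308 CPM in p53 KO cells, against 1119 and 1074 in WT cells (log2 fold change -1.79 ± 0.045, adjusted p = 2.34e-16). The scarcer network chains COL4A3 and COL4A4 fell to 1.45 and 1.46 and to 3.78 and 3.33 CPM in p53 KO cells, against 7.28 and 8.06 and 26.6 and 24.1 in WT cells (log2 fold changes -2.39 ± 0.20 and -2.83 ± 0.12). Neither p53 KO library overlapped WT in these 4 genes. COL8A1, the leading chain, had 447 and 430.1 CPM in p53 KO cells, against 1311 and 1321 in WT cells (log2 fold change -1.58 ± 0.040). COL1A1 had 41.1 and 41.02 CPM in p53 KO cells, against 128 and 136 in WT cells (log2 fold change -1.68 ± 0.060). COL12A1 had 679.5 and 601 CPM in p53 KO cells, against 1026 and 987 in WT cells (log2 fold change -0.65 ± 0.054). COL18A1 had 38.03 and 36.98 CPM in p53 KO cells, against 70.6 and 66.4 in WT cells (log2 fold change -0.87 ± 0.060). COL6A1 had 20.7 and 22.4 CPM in p53 KO cells, against 35.6 and 37.5 in WT cells (log2 fold change -0.76 ± 0.074). Each was called and none overlapped. COL11A1, a cartilage fibrillar chain, had 0.363 and 0.455 CPM in p53 KO cells, against 1.79 and 2.92 in WT cells (log2 fold change -2.52 ± 0.40, adjusted p = 2.28e-05). COL6A3 fell by 0.21, a call lost without p53 KO ATRi replicate 2 (adjusted p = 0.107, against 0.00499 to 0.193 over all its alternatives), and had the opposite sign on the FPKM scale (0.30), where the median of all genes is shifted by 0.259.

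Among the 8 risers of RPE-1 p53 KO cells COL7A1 was at 28.3 FPKM in p53 KO and 15.3 FPKM in WT cells (means of 2). It had 72.6 and 83.5 CPM in p53 KO cells, against 54.6 and 52.1 in WT cells (log2 fold change 0.55 ± 0.065). COL16A1 had 20.6 and 23.6 CPM in p53 KO cells, against 10.1 and 10.2 in WT cells (log2 fold change 1.12 ± 0.11, adjusted p = 3.90e-08, edgeR). COL17A1 had 3.73 and 4.34 CPM in p53 KO cells, against 1.64 and 2.03 in WT cells (log2 fold change 1.13 ± 0.24, adjusted p = 0.000401). COL4A6 had 5.08 and 4.24 CPM in p53 KO cells, against 1.93 and 1.84 in WT cells (log2 fold change 1.30 ± 0.22, adjusted p = 3.50e-05). These 4 are chains that were abundant in MCF10A and had fallen there in p53 KO against WT cells. COL3A1, partner of type I in soft tissue fibrils, had 2.75 and 1.97 CPM in p53 KO cells, against 0.714 and 0.952 in WT cells (log2 fold change 1.48 ± 0.32, adjusted p = 0.000537), and COL21A1, a FACIT chain, 1.66 and 2.27 CPM in p53 KO cells, against 0.786 and 0.190 in WT cells (log2 fold change 2.05 ± 0.42, adjusted p = 0.000336). The basal epithelial markers averaged -1.36 and 0.62 log2 CPM in p53 KO, against -0.63 and 0.004 in WT cells, with 1 of the 10 at 1 CPM or more in every RPE-1 library, and proliferation genes 6.41 and 6.24, against 4.33 and 4.25; their part was not tested.

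In cells labelled WT cGAS, 11 of 28 collagen genes rose and 13 fell against WT cells (59.8% of all genes called, 29.8% higher and 30% lower; limma on FPKM gave 11 higher and 8 lower collagen genes, median -0.002 against 0.0203). COL7A1 had 338 and 353 CPM in WT cGAS cells, against 54.6 and 52.1 in WT cells (log2 fold change 2.70 ± 0.061, adjusted p = 6.19e-16, edgeR). COL16A1 had 36.9 and 40.8 CPM in WT cGAS cells, against 10.1 and 10.2 in WT cells (log2 fold change 1.93 ± 0.10, adjusted p = 5.59e-12). COL17A1 had 5.58 and 7.01 CPM in WT cGAS cells, against 1.64 and 2.03 in WT cells (log2 fold change 1.76 ± 0.22, adjusted p = 1.18e-06). COL4A6 had 6.34 and 7.01 CPM in WT cGAS cells, against 1.93 and 1.84 in WT cells (log2 fold change 1.82 ± 0.20, adjusted p = 2.93e-07). COL5A3 had 3.12 and 2.75 CPM in WT cGAS cells, against 0.643 and 0.762 in WT cells (log2 fold change 2.05 ± 0.30, adjusted p = 1.02e-05). In each of these both WT cGAS libraries were above both WT libraries. COL5A2, partner of type V, had 405 and 395 CPM in WT cGAS cells, against 251 and 245 in WT cells (log2 fold change 0.69 ± 0.044). COL8A1 had 1531 and 1598 CPM in WT cGAS cells, against 1311 and 1321 in WT cells (log2 fold change 0.25 ± 0.038). COL6A1 had 48.7 and 49.7 CPM in WT cGAS cells, against 35.6 and 37.5 in WT cells (log2 fold change 0.43 ± 0.066), and all 3 rose. Among the fallers COL14A1, a FACIT chain of type I fibrils, had 3.94 and 4.10 CPM in WT cGAS cells, against 17.7 and 14.9 in WT cells (log2 fold change -2.01 ± 0.16, adjusted p = 2.74e-09). COL6A3 had 13.3 and 12.1 CPM in WT cGAS cells, against 50.1 and 50.1 in WT cells (log2 fold change -1.98 ± 0.082, adjusted p = 2.19e-13). COL12A1 had 475 and 446 CPM in WT cGAS cells, against 1026 and 987 in WT cells (log2 fold change -1.13 ± 0.055, adjusted p = 9.64e-10). COL4A4 had 9.57 and 9.26 CPM in WT cGAS cells, against 26.6 and 24.1 in WT cells (log2 fold change -1.42 ± 0.10, adjusted p = 6.63e-10). COL4A3 had 3.50 and 2.75 CPM in WT cGAS cells, against 7.28 and 8.06 in WT cells (log2 fold change -1.30 ± 0.17, adjusted p = 2.85e-06). No library overlapped. COL4A1, COL4A2 and COL1A1 fell by 0.84, 0.38 and 0.84. COL18A1 and COL27A1 fell by 0.25 and 0.35 but were 0.038 and 0.074 higher on the FPKM scale. Interferon-stimulated genes averaged 8.78 and 8.51 log2 CPM in WT cGAS, against 3.06 and 3.55 in WT cells, and their part in the collagen changes was not tested. Both RPE-1 comparisons use the same 2 WT libraries.

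**Figure D4:**
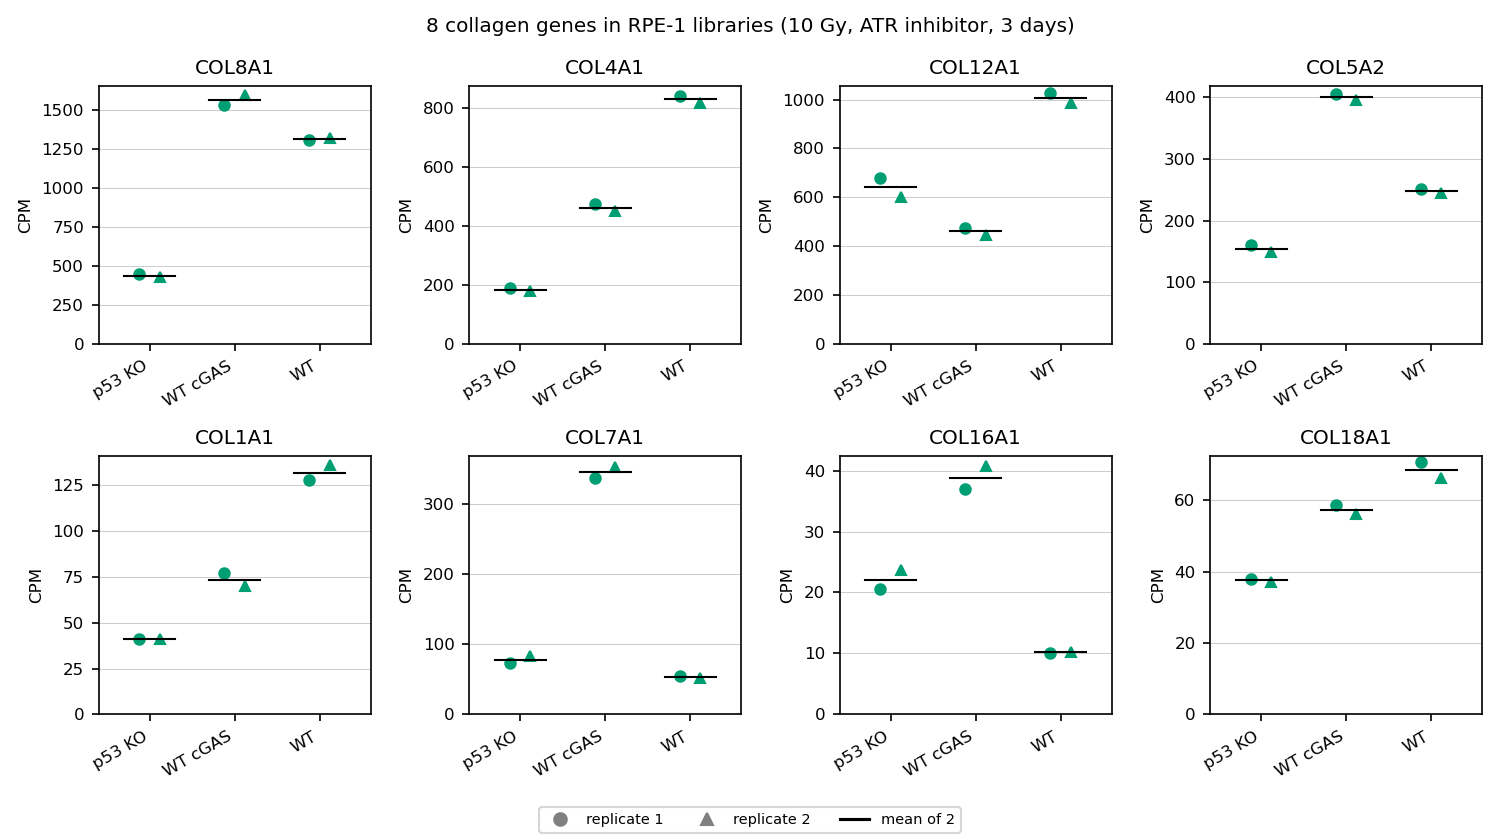
Levels of COL8A1, COL4A1, COL12A1, COL5A2, COL1A1, COL7A1, COL16A1 and COL18A1 in the 6 RPE-1 libraries, in CPM on linear axes. Circles are replicate 1, triangles replicate 2 and bars the mean of the 2. COL7A1 is at 338 and 353 CPM in WT cGAS cells and at most 83.5 CPM elsewhere, and COL8A1, COL4A1 and COL1A1 are lowest in p53 KO cells.

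Paired type IV genes mostly had the same sign, most often COL4A1 and COL4A2, the 2 chains that share a trimer in all basement membranes. COL4A1 and COL4A2 were both called in 9 of 16 comparisons, in the same direction each time, and had the same sign in 15. Their count ratio was 0.282 to 0.748 (median 0.519) in the 26 MCF10A libraries and 0.545 to 0.761 (median 0.579) in the 6 of RPE-1. COL4A2 ranged from 2.26 to 62.1 FPKM (median 13.03) in MCF10A. COL4A3 and COL4A4 were both called in 4, always in the same direction, and had the same sign in 13. COL4A5 and COL4A6 were both called in 8, in the same direction in 6, and had the same sign in 10. The 2 exceptions were DKO against p53 KO, where COL4A6 rose and COL4A5 fell, and RPE-1 p53 KO against WT, where COL4A6 rose by 1.30 and COL4A5 fell by 1.23. The count ratio of COL4A5 to COL4A6 was 0.701 to 1.54 (median 1.15) in MCF10A and 8.18 to 51.1 (median 18.2) in RPE-1, where COL4A5 had 40.6 to 133 CPM and COL4A6 1.84 to 7.01 CPM. For the beaded filament genes COL6A1 and COL6A2 the ratio was 6.31 to 372 (median 50.3) in MCF10A and 80 to 166 (median 148) in RPE-1, and COL6A1 ran at 0.566 to 13.4 FPKM (median 2.50) and COL6A2, its partner in the assembled protein, at 0 to 1.59 FPKM (median 0.0990) in MCF10A. Several comparisons share control libraries, so these counts of comparisons are not independent of each other. Gene pairs outside the collagens were not counted.

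By class, 4 of the 11 fibrillar chains rose with irradiation at 5 d and 0 fell, of 6 tested, where 15.1% of all genes rose, and of the 4 the calls of COL5A3 and COL27A1 are lost without single libraries. All 3 beaded filament chains tested fell in XRCC4 KO cells at 5 d, where 12.4% of all genes fell, with COL6A2 and COL6A3 again losing their calls without single libraries. All 3 rose in the DKO with ATRi against XRCC4 KO with ATRi, where 35.7% of all genes rose. Of the 6 basement membrane chains, 4 fell with ATRi in XRCC4 KO cells (10.3% of all genes lower) and 4 in the DKO (32.4% lower), where COL4A3 and COL4A4 rose. In XRCC4 KO cells the COL4A2 libraries with and without ATRi overlapped in FPKM. In RPE-1 5 of 6 fell in p53 KO (32.5% lower) and 4 of 6 in WT cGAS cells (30% lower). COL18A1 fell in 8 of 16 comparisons, 1 of which (RPE-1 WT cGAS) turns on the FPKM scale, and rose in none. It was lower in every MCF10A knockout line set against WT cells. COL4A5 fell in 10, by only 0.13 on the log2 scale in XRCC4 KO at 3 d, and rose in 1. COL11A2 and COL5A3 rose in 6 and in 7 and fell in none. COL17A1 rose in 8 and fell in 5. Several comparisons share libraries, and from 0.263 to 71.8% of all genes were called in a single comparison. How often other genes were called over the 16 was not counted, so these tallies do not mark a trait of these genes.

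**Figure D5:**
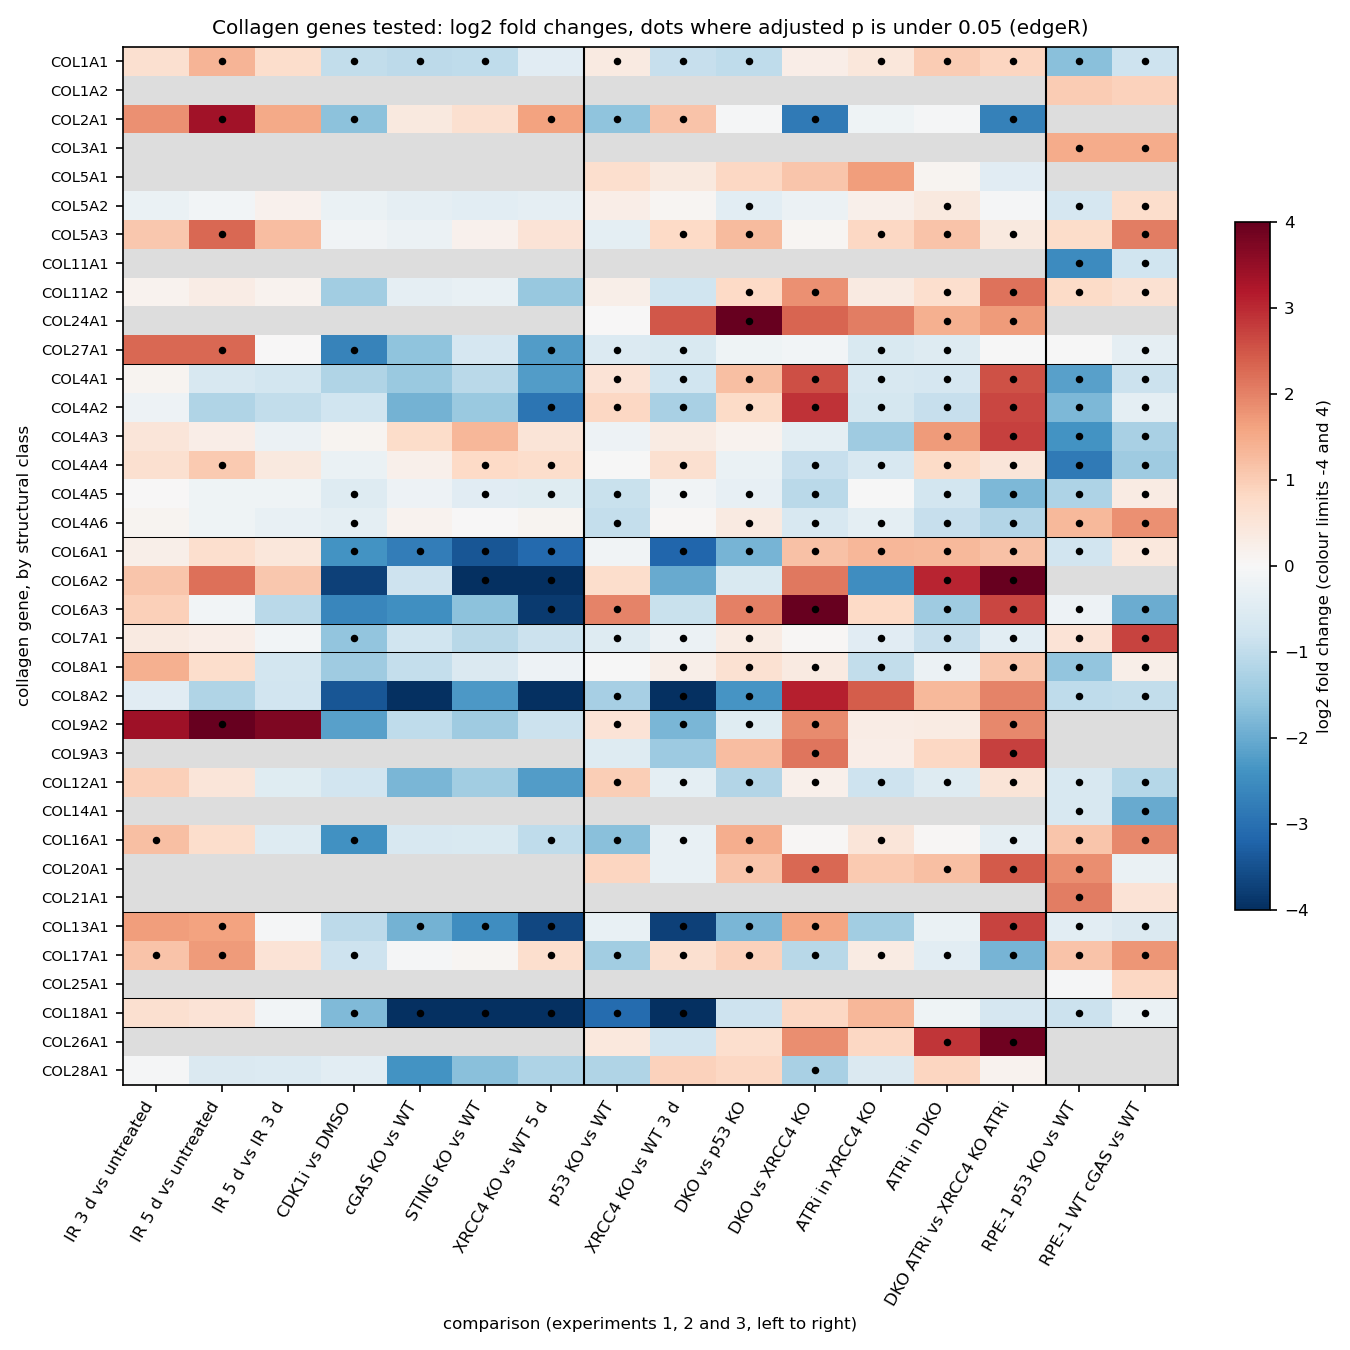
Log2 fold changes of the 36 collagen genes tested in any experiment, ordered by structural class, in the 16 comparisons, with colour limits of -4 and 4. Black dots mark edgeR adjusted p below 0.05 and grey marks genes not tested. Some of the directions shown turn on the FPKM scale, namely COL9A2 in DKO against p53 KO, COL28A1 in DKO against XRCC4 KO, COL8A1 with ATRi in the DKO, COL16A1 and COL7A1 in DKO against XRCC4 KO with ATRi, COL6A3 in RPE-1 p53 KO, and COL18A1 and COL27A1 in RPE-1 WT cGAS.

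More genes that process collagen fell than rose in several comparisons, not all of which had mostly falling chains. Of 23 genes of collagen modification and secretion, 0 rose and 21 fell of 23 tested (median log2 fold change -0.63) in RPE-1 p53 KO against WT cells, where 16 collagen genes fell and 8 rose. They included PLOD2, a lysyl hydroxylase, with 451 and 427 CPM in p53 KO cells, against 943 and 991 in WT cells (log2 fold change -1.14 ± 0.043, adjusted p = 6.57e-14, edgeR), and P4HA2, a prolyl hydroxylase subunit, with 68.03 and 72.1 CPM in p53 KO cells, against 143 and 145 in WT cells (log2 fold change -1.04 ± 0.059, adjusted p = 7.92e-11). In MCF10A 2 rose and 16 fell of 22 tested (median log2 fold change -0.41) in XRCC4 KO against WT cells at 3 d, and 3 rose and 14 fell of 22 tested (median log2 fold change -0.20) in p53 KO. P3H2, a prolyl 3-hydroxylase active on type IV collagen, was the larger of the risers in XRCC4 KO cells at 3 d, with 198 and 199 CPM in XRCC4 KO cells, against 45.8 and 46.1 in WT cells (log2 fold change 2.11 ± 0.051, adjusted p = 1.32e-21). It had 43.02 and 43.3 CPM in the DKO with ATRi, against 152 and 142 in XRCC4 KO cells with ATRi (log2 fold change -1.77 ± 0.051, adjusted p = 1.31e-20). With ATRi in the DKO 4 rose and 13 fell of 22 tested (median log2 fold change -0.20), and in XRCC4 KO cells 2 rose and 4 fell of 22 tested (median log2 fold change 0.045). In the first experiment 0 rose and 2 fell of 21 tested (median log2 fold change 0.11) with irradiation at 5 d, where 14.3% of all genes fell. With CDK1i 0 rose and 2 fell of 21 tested (median log2 fold change -0.33), where 7.37% of all genes fell. In cGAS KO, STING KO and XRCC4 KO cells 4, 4 and 6 of 21 fell with 0 rising, where 6.88, 7.73 and 12.4% of all genes fell. Of all genes 32.5% fell in RPE-1 p53 KO, 27.5% in XRCC4 KO at 3 d and 27% in p53 KO MCF10A cells. ATRi was accompanied by a fall of 32.4% of all genes in the DKO and 10.3% in XRCC4 KO cells.

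Of the 15 genes of cross-linking and procollagen cleavage, more fell than rose in the XRCC4, cGAS and STING knockouts of MCF10A. In XRCC4 KO against WT cells at 3 d 2 rose and 11 fell of 13 tested (median log2 fold change -1.69), at 5 d 0 rose and 7 fell of 12 tested (median log2 fold change -1.98), in STING KO 0 rose and 5 fell of 12 tested (median log2 fold change -0.81) and in cGAS KO 0 rose and 4 fell of 12 tested (median log2 fold change -0.93). Of all genes 27.5, 12.4, 7.73 and 6.88% fell in these comparisons, in the same order. TGM2, a transglutaminase, had 19.8 and 19.2 CPM in XRCC4 KO cells at 3 d in the second experiment, against 429 and 419 in WT cells (log2 fold change -4.44 ± 0.064, adjusted p = 3.54e-26, edgeR). At 5 d in the first experiment it had 9.77 and 12.3 CPM in cGAS KO, 23.9 and 8.54 in STING KO and 4.34 and 5.11 in XRCC4 KO cells, against 73.3 and 172 in WT cells. PXDN, the peroxidase that cross-links type IV collagen, had 27.2 and 27.2 CPM in cGAS KO and 52.1 and 85.97 in STING KO cells, against 336 and 297 in WT cells (log2 fold changes -3.54 ± 0.33 and -2.20 ± 0.31, both called). It fell with ATRi in XRCC4 KO cells, to 57.5 and 56.1 CPM in XRCC4 KO cells with ATRi, against 101 and 101 in XRCC4 KO cells (log2 fold change -0.83 ± 0.051, adjusted p = 5.07e-12, edgeR). COL4A1 and, in CPM but not in FPKM, COL4A2 fell in that comparison as well. In the DKO against XRCC4 KO 10 rose and 2 fell of 13 tested (median log2 fold change 1.44), where 32.2% of all genes rose. In RPE-1, ADAMTS14, which trims procollagen, had 19.2 and 20.4 CPM in p53 KO and 18.65 and 21.3 in WT cGAS cells, against 213 and 244 in WT cells, and LOXL1, a lysyl oxidase-like enzyme, 73.8 and 64.96 in p53 KO and 91.7 and 84.6 in WT cGAS cells, against 271 and 272 in WT cells; in each the WT libraries were far above the rest and all 4 differences were called. Of the list 1 rose and 8 fell of 12 tested (median log2 fold change -0.95) in p53 KO and 3 rose and 6 fell of 12 tested (median log2 fold change -0.94) in WT cGAS cells. Of all genes 32.5 and 30% fell there.

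Among 11 collagen receptor genes, 0 rose and 7 fell of 9 tested (median log2 fold change -0.92) in XRCC4 KO against WT cells at 3 d and 7 rose and 1 fell of 9 tested (median log2 fold change 1.29) in the DKO against XRCC4 KO. ITGA2, the integrin chain that binds fibrillar collagen in epithelium, had 182 and 175 CPM in XRCC4 KO cells, against 456 and 469 in WT cells (log2 fold change -1.38 ± 0.041, adjusted p = 8.82e-20, edgeR). It rose with irradiation, with 289 and 361 CPM at 3 d, against 202 and 159 in untreated cells (log2 fold change 0.84 ± 0.15, adjusted p = 0.0159). ITGA10 had 4.45 and 4.503 CPM in cGAS KO, 8.16 and 11.2 in STING KO and 3.90 and 4.15 CPM in XRCC4 KO cells, against 22.8 and 30.1 in WT cells. DDR2, a receptor kinase for fibrillar collagen, had 20.2 and 17.4 CPM in the DKO with ATRi, against 3.63 and 3.48 in XRCC4 KO cells with ATRi (log2 fold change 2.39 ± 0.14, adjusted p = 2.37e-14), whereas DDR1, its epithelial relative, had 156 and 157 CPM in the DKO with ATRi, against 329 and 298 in XRCC4 KO cells with ATRi (log2 fold change -1.001 ± 0.051, adjusted p = 1.49e-14). In RPE-1 3 rose and 6 fell of 9 tested (median log2 fold change -0.84) in p53 KO and 2 rose and 6 fell of 9 tested (median log2 fold change -0.71) in WT cGAS cells, with ITGA2 at 283 and 274 CPM in p53 KO and 639 and 636 in WT cGAS, against 143 and 152 in WT cells, and ITGA11, a receptor of fibroblasts, at 203 and 179 in p53 KO and 269.9 and 267 in WT cGAS, against 549 and 579 in WT cells. ITGA2 rose and ITGA11 fell in both. These counts are read against the shares of all genes called. For XRCC4 KO at 3 d 27.5% were lower, and for the DKO against XRCC4 KO 32.2% were higher. For RPE-1 p53 KO and WT cGAS cells 32.5 and 30% were lower.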

How the data were processed

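Polyadenylated RNA was sequenced from 26 MCF10A and 6 RPE-1 libraries. The authors deposited a table of unnormalized estimated counts and a table named as FPKM, fragments scaled to gene length and library total. That the counts are estimates was read from the values, 96 to 97.3% of which are whole, and they were rounded. The submitters' processing notes name hg19, STAR, Cuffnorm and DESeq2, with neither versions nor roles. The annotation version and strand setting are not given in the sources used here. Each experiment was fitted apart with edgeR 4.0.16 in R 4.3.3 (filterByExpr by group, TMM scaling, robust quasi-likelihood F test, two-sided, Benjamini-Hochberg over all 15190, 16632 and 15469 genes tested). The standard error is the log2 fold change divided by the root of F. CPM uses the scaled library totals. Counting intervals and floors (3 counts over a group) cover counting error only. The pipeline was tested on simulated counts. Alternatives were DESeq2 1.42.0, limma 3.58.1 on log2 FPKM, other size factors, no filter, only the groups compared, a replicate term and each library left out. Collagen genes and pathway lists were chosen with earlier results of these data known. Named with values in every library were 10 genes chosen for their role and, in each comparison, up to 5 called collagen genes per direction with the largest fold change at a group mean of at least 1 CPM, and up to 3 called genes of a list. Any other gene given with values was chosen after its values were seen. Promoters are RefSeq, GRCh38.p14, for 31 of 42 genes.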

Additional observations from a re-analysis of the deposited data

Results flagged for a closer look

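The same contrast gave different effects in different lines for several collagen genes. The ATRi effect differed between the DKO and XRCC4 KO for 11 of 30 collagen genes tested by edgeR's interaction term (5 more positive and 6 more negative), a share near the 34% of all genes called. Limma on FPKM gave 5 and 1. The log2 difference, DKO minus XRCC4 KO, was COL6A3 -2.22, COL17A1 -0.75, COL4A5 -0.73, COL4A6 -0.53 and COL7A1 -0.47 on the negative side. On the positive side it was COL4A3 3.12, COL4A4 1.42, COL8A1 0.73, COL1A1 0.57 and COL12A1 0.31, where the sign of COL12A1 turns on the FPKM scale. The effect of XRCC4 loss differed between p53 KO and p53 WT cells for 19 of 30 (14 more positive and 5 more negative), where 43.7% of all genes were called. Limma on FPKM gave 9 and 0. The log2 difference, p53 KO minus p53 WT, was COL2A1 -1.21, COL4A4 -0.91, COL12A1 -0.78, COL5A2 -0.49 and COL4A5 -0.18 on the negative side and COL18A1 3.92, COL6A3 2.92, COL4A2 2.07, COL4A1 2.02 and COL13A1 1.90 on the positive side.

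Of 12 collagen genes called in p53 KO against WT in both lines, 9 were called in opposite directions in MCF10A without ATRi and in RPE-1 with ATRi, namely COL1A1, COL4A1, COL4A2, COL4A6, COL6A3, COL7A1, COL12A1, COL16A1 and COL17A1, where COL6A3 in RPE-1 turns on the FPKM scale. Over all 5994 genes called in both contrasts 21.3% were called in opposite directions. Line and treatment both differ between these contrasts, and the difference was not tested.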

How the results depend on the processing

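Over single collagen genes called by edgeR, other size factors kept all 249 calls, the replicate block 247, no filter 230, DESeq2 210 and limma on FPKM 164 of 249, and leaving out a library kept 968 of 1116. On FPKM the median of all genes shifted by 0.343 in DKO against XRCC4 KO with ATRi and by 0.259 in RPE-1 p53 KO. There 9 directions turned: COL9A2 in DKO against p53 KO (0.19), COL28A1 in DKO against XRCC4 KO (0.030), COL8A1 with ATRi in the DKO (0.13), COL16A1 and COL7A1 in DKO against XRCC4 KO with ATRi (0.26 and 0.23), COL6A3 in RPE-1 p53 KO (0.30), COL18A1 and COL27A1 in RPE-1 WT cGAS (0.038 and 0.074) and COL12A1 in the difference of the ATRi effect (-0.22). The cause was not tested. Collagen genes called on FPKM numbered 1 for irradiation at 3 d, 4 at 5 d, 5 for CDK1i, 2 for cGAS KO, 3 for STING KO, 6 for XRCC4 KO at 5 d, 11 for DKO against p53 KO, 5 for ATRi in XRCC4 KO, and 6 and 9 for the differences of the ATRi and XRCC4 effects. DESeq2 called 4 at 3 d and 3 between 3 and 5 d. With only the groups compared, 0 were called at 3 d, 4 at 5 d, 0 with CDK1i and 3 in STING KO. Leaving out 1 library gave 1 to 4 at 3 d, 3 to 8 at 5 d, 0 between 3 and 5 d, 3 to 8 with CDK1i, 1 to 3 in cGAS KO, 3 to 7 in STING KO and 5 to 11 in XRCC4 KO at 5 d. In the other comparisons the count stayed within 1.5 times its value. Replicate numbers were not taken to pair samples: same-numbered deviations correlated at over 0.1 in 7 of 21 pairs of groups of the first experiment (-0.265 to 0.439) and in none of the others. These include all 6 pairs among its 4 WT groups (0.245 to 0.439), a hint from the data that numbers are shared there. The replicate block gave 3 calls at 3 d, 9 at 5 d and 12 with CDK1i, adding COL27A1 at 3 d (adjusted p = 0.0189), COL16A1 at 5 d (0.0251) and COL6A2 and COL6A3 with CDK1i (0.0325 and 0.0392). COL12A1 at 3 d and COL4A2 at 5 d stayed uncalled (0.343 and 0.200). It ended the calls of COL4A4 in XRCC4 KO at 5 d (adjusted p = 0.0554) and COL24A1 with ATRi in the DKO (0.0537, edgeR). With 2 libraries a group, low-count chains are resolved only coarsely.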
